A study of Homo sapiens with 38 samples.

Results

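The p53 target genes followed here are 30 genes picked by name, among the best established genes whose transcription p53 raises, and all 30 were found among the 43412 gene rows of the study's count table. All 30 had enough counts to be tested, among 24304 genes tested in all. They were read in total RNA of H9, an established human embryonic stem cell line, taken through 3 kinds of WNT activation, here called arms. The first arm received 10 µM of CHIR99021, a small molecule that inhibits the kinase GSK3, and was sampled after 8, 16, 24, 48 and 72 h. The Wnt3a arm received 240 ng/ml of the recombinant secreted ligand and was sampled after 8, 24, 48, 72, 96 and 120 h. For the bcat arm, H9 cells with a stably integrated, doxycycline-controlled deltaN90 beta-catenin, a constitutively active form of the protein, received 1 µg/ml of doxycycline and were sampled after 8, 16, 24, 48 and 72 h.

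The 0 h group was separate in every arm: untreated H9 for CHIR99021 and for Wnt3a, and the uninduced line for bcat. The labels do not say whether the bcat line is 1 clone, and doxycycline was given to no cells without the construct. Cells of every arm were kept in mTeSR1 on Geltrex, seeded at full confluence on Matrigel, and moved to RPMI1640 with B27 lacking vitamin A when the agent was added. The time since the medium change, the new medium and the agent therefore cannot be told apart in a change from 0 h, since no group received the new medium alone. There were 19 groups of 2 biological replicates. Both columns of Wnt3a at 72 h held identical values in all 43412 rows and were used as 1 library, which leaves 37 libraries and n = 1 in that group. In such bulk samples, fewer cells of a type and less RNA per cell cannot be told apart.

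p53 is a transcription factor that cells keep scarce through MDM2, a ubiquitin ligase that marks it for destruction and is itself a p53 target. When DNA is damaged or other stress is sensed, p53 accumulates and raises genes that stop the cell cycle, repair DNA, adjust metabolism or trigger cell death. Human pluripotent stem cells are known to be poised for cell death, and p53 is known to act against the pluripotent state, while many of its targets are also controlled by other transcription factors.

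p53 binds DNA through pairs of a 10-base element, the p53 consensus decamer. RefSeq windows from 250 bases before to 50 bases after a transcription start (GRCh38.p14) were available for 25 of the 30 members, and they were searched for the decamer, which reads the same on both strands by its definition. At least 1 match was found in 7 of these 25 genes (28%), against 8.06% of the 27305 genes with a window. DDB2 was the only member with a pair of matches at most 13 bases apart, an arrangement found in 10 genes (0.0366%). These 7 sequences are shown because they are the member windows that hold the element, with the matching bases in capitals and each sequence written 5′ to 3′ along the gene's own strand.
PLK2: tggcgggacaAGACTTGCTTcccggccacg
SESN1: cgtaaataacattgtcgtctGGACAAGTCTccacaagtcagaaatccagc
FAS: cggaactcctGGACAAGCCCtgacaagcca
DDB2: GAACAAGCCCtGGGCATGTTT
RPS27L: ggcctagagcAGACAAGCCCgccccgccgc
AEN: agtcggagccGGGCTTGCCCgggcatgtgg
FDXR: ggcgggcccgggcaggagcGGGCTTGCCCt

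In GRCh38 coordinates, PLK2 lies at chr5:58460199-58460228 (- strand), SESN1 lies at chr6:109009008-109009057 (- strand), FAS lies at chr10:88991299-88991328 (+ strand), DDB2 lies at chr11:47214979-47214999 (+ strand). RPS27L lies at chr15:63157517-63157546 (- strand), AEN lies at chr15:88621296-88621325 (+ strand), FDXR lies at chr17:74872995-74873024 (- strand). By GENCODE release 29, the SESN1 stretch is intronic, the FAS stretch overlaps an exon of FAS and also the gene ACTA2, and the other 5 overlap an annotated UTR of the same gene. Counted from the start site at 0, the first matching base stands at -132 in PLK2, -49 in SESN1, -122 in FAS, 5 in DDB2, -59 in RPS27L, -34 in AEN and -11 in FDXR. A match is a string of letters, not a measured p53 site, and a window without one shows only that the letters are not there.

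Counts per library, after removal of a constant that multiplied each deposited column, ran from 2.45 M to 65.7 M, a 26.8-fold range. In 4 libraries the depth was under 3 M (Wnt3a 0 h replicate 1) or over 30% of the counts were ribosomal RNA (bcat 0 h replicate 1, 24 h replicate 1 and 48 h replicate 2), and these are called the libraries that stood apart. CTNNB1, the gene for beta-catenin, was called higher in the bcat arm by 1.68 to 2.00 on the log2 scale at its 5 times. The WNT targets AXIN2 and SP5 were called higher at all times with CHIR99021 and in the bcat arm, AXIN2 by 2.37 to 4.37 and SP5 by 7.44 to 9.62. With Wnt3a, SP5 was called higher at all 6 times (7.66 to 10.32), while AXIN2 was called higher at 8, 48 and 120 h (1.58, 0.92 and 1.04), was called lower at 24 h (-0.71 ± 0.21, edgeR adjusted p = 0.017) and was not called at 72 and 96 h (0.53 and -0.26, adjusted p = 0.135 and 0.338). At 0 h the 8 pluripotency markers summed to between 5008 and 6174 CPM in the libraries of the 3 arms, while the neural marker PAX6 had 0 counts. CPM are counts-per-million values on library sizes after TMM scaling, and values are listed as replicate 1 and then replicate 2. Log2 changes are fitted values against the arm's own 0 h, given ± standard error, and a gene is called risen or fallen where the adjusted p of edgeR's quasi-likelihood test is below 0.05. P-values measure the spread between these libraries. Where a call is said to be lost, the value given is the log2 change with that library left out.

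With CHIR99021 fallen members outnumbered risen ones most clearly at 8, 16 and 72 h, and the median leaned down at 16 and 72 h. With CHIR99021 at 8 h, 2 of the 30 rose and 8 fell (9.2% and 11.7% of all genes, 20.9% together), with a median of 0.01 (all genes -0.01). At 16 h, 0 of the 30 rose and 17 fell (6.55% and 9.34% of all genes, 15.9% together), with a median of -0.60 (all genes -0.02). Against that 0, 1 member rose at an unadjusted p below 0.05 and 1 by DESeq2. At 24 h, 5 of the 30 rose and 4 fell (5.91% and 8.61% of all genes, 14.5% together), with a median of 0.05 (all genes -0.01). By 48 h, 7 of the 30 rose and 8 fell (15.7% and 18.1% of all genes, 33.9% together), with a median of 0.01 (all genes 0.02). By 72 h, 3 of the 30 rose and 12 fell (11.5% and 13.4% of all genes, 24.9% together), with a median of -0.26 (all genes 0.00). The share that fell was above that of all genes at each of the 5 times. With scaling by library totals, which called fewer of all genes too (5.27%, 4.49%, 4.21% and 11.8% at 8, 16, 24 and 72 h), the members called numbered 1, 5, 2 and 5 at those times. With the libraries of this arm alone, 10 rose and 7 fell at 24 h, where 23.4% of all genes were called. Counts of risen and fallen members that moved by over 1.5 times with 1 library left out were 1 and 5 at 8 h without 0 h replicate 2, 1 and 5 at 8 h without 8 h replicate 1, 0 and 11 at 16 h without 0 h replicate 2, 4 and 1 at 24 h without 0 h replicate 2, 4 and 1 at 24 h without 24 h replicate 1 and 2 and 2 at 24 h without 24 h replicate 2.

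With Wnt3a the direction differed from time to time, and members that rose outnumbered those that fell at 24, 96 and 120 h. With Wnt3a at 8 h, 1 of the 30 rose and 2 fell (2.28% and 1.18% of all genes, 3.45% together), with a median of -0.15 (all genes 0.04). At 24 h of Wnt3a, 11 of the 30 rose and 1 fell (9.32% and 10.9% of all genes, 20.2% together), with a median of 0.35 (all genes 0.04). At 48 h of Wnt3a, 2 of the 30 rose and 7 fell (7.58% and 8.56% of all genes, 16.1% together), with a median of -0.19 (all genes 0.00). At 72 h of Wnt3a (n = 1), 3 of the 30 rose and 4 fell (8.43% and 7.94% of all genes, 16.4% together), with a median of -0.25 (all genes 0.01). The 72 h group is 1 library, so its standard errors and p-values take their spread from the other groups and assume that it varies like them. This holds for each member called there, which were TP53INP1, BTG2, PERP, AEN, CYFIP2, RRM2B and TP53I3. At 96 h, 13 of the 30 rose and 5 fell (18.8% and 21% of all genes, 39.9% together), with a median of 0.43 (all genes 0.07). At 120 h, 7 of the 30 rose and 5 fell (12.2% and 15.6% of all genes, 27.9% together), with a median of -0.02 (all genes 0.00). At the times with most risen members, the WNT target AXIN2 was called lower (24 h) or not called (96 h), against the direction that the label gives, while SP5 was called higher at both. The times with most risen members, 24 and 96 h, are also those at which lincRNA genes stood furthest above protein-coding genes. The median change of 679 lincRNA genes exceeded that of 15905 protein-coding genes by 0.53 at 24 h and 0.74 at 96 h, against 0.38 at 120 h, 0.21 at 72 h, 0.08 at 48 h and -0.05 at 8 h. With CHIR99021 the same excess was 0.12 to 0.23, and in the bcat arm -0.04 to 0.31. The part of AXIN2 or of this excess in the members' changes was not tested. With 1 library left out, counts of risen and fallen members that moved by over 1.5 times were 1 and 0 at 8 h without 8 h replicate 1, 2 and 1 at 48 h without 0 h replicate 2, 2 and 2 at 48 h without 48 h replicate 2, 3 and 1 at 72 h without 0 h replicate 2 and 10 and 1 at 96 h without 0 h replicate 2.

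In the bcat arm the members leaned down at every time. At 8 h of doxycycline, 2 of the 30 rose and 9 fell (10.7% and 8.01% of all genes, 18.7% together), with a median of -0.31 (all genes 0.05). At 16 h of doxycycline, 2 of the 30 rose and 8 fell (6.23% and 4.69% of all genes, 10.9% together), with a median of -0.25 (all genes 0.07). At 24 h of doxycycline, 2 of the 30 rose and 6 fell (6.87% and 5.95% of all genes, 12.8% together), with a median of -0.14 (all genes 0.09). The fallen share was above that of all genes at each of these times. At 48 h of doxycycline, 2 of the 30 rose and 12 fell (11.1% and 10.1% of all genes, 21.3% together), with a median of -0.28 (all genes 0.03). At 72 h of doxycycline, 3 of the 30 rose and 14 fell (13.6% and 13.6% of all genes, 27.3% together), with a median of -0.29 (all genes 0.06). The highest number of fallen members in this arm was at 72 h. With 1 library left out, counts of risen and fallen members that moved by over 1.5 times were 0 and 6 at 16 h without 0 h replicate 1 and 3 and 8 at 72 h without 72 h replicate 2. Without the 4 libraries that stood apart, the counts were 2 and 8 at 8 h, 0 and 6 at 16 h, 1 and 4 at 24 h, 2 and 12 at 48 h and 1 and 12 at 72 h.

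Markers of cell state moved over the same times. The 8 pluripotency markers summed to 5623 to 5642 CPM at CHIR 0 h, 2017 to 2045 at 48 h and 2839 to 2905 at 72 h. With Wnt3a they went from 5331 to 6174 CPM at 0 h to 2882 to 3124 at 96 h, and in the bcat arm from 5008 to 5567 CPM to 2581 to 2904 at 72 h. Markers of primitive streak and mesoderm, 7 in the table, summed to between 1.47 and 2.43 CPM in the 0 h libraries of the 3 arms. Their sums reached 810 to 871 CPM at CHIR 72 h, 634 to 686 at Wnt3a 48 h and 450 to 461.8 at bcat 72 h, with MSGN1 at 0 counts in Wnt3a at 24, 96 and 120 h. The 4 definitive endoderm markers summed to between 0.675 and 3.02 CPM at 0 h, and to 237 to 270.4 CPM at CHIR 48 h, 152 to 231 at Wnt3a 96 h and 72.9 to 76.6 at bcat 72 h. In the CHIR 48 h libraries SOX17 had 0 counts. The 4 neural markers reached 137 to 191 CPM at bcat 72 h and 68.2 to 75.5 at CHIR 48 h, with PAX6 at 0 counts in both groups, and stayed at or below 1.01 CPM with Wnt3a. The 5 amnion and trophoblast markers summed to 203 to 204 CPM at CHIR 72 h and 215 to 239.5 at bcat 72 h, against 7.14 to 17.6 at 0 h. The part of these shifts in the members' changes was not tested.

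**Figure D1:**
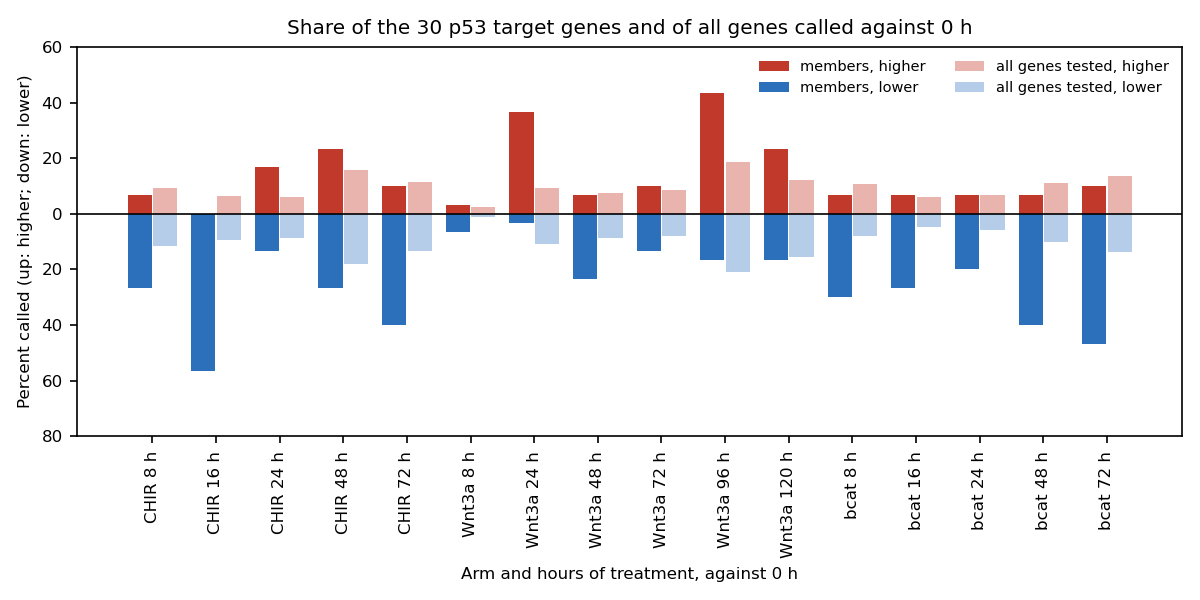
Percent of the 30 p53 target genes (dark bars) and of the 24304 genes tested (light bars) called against 0 h, with risen genes above and fallen genes below the zero line, for each arm and time. The fallen share of the members is deepest at CHIR 16 h (17 of 30), and the risen share is highest at Wnt3a 24 h (11) and 96 h (13).

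**Figure D2:**
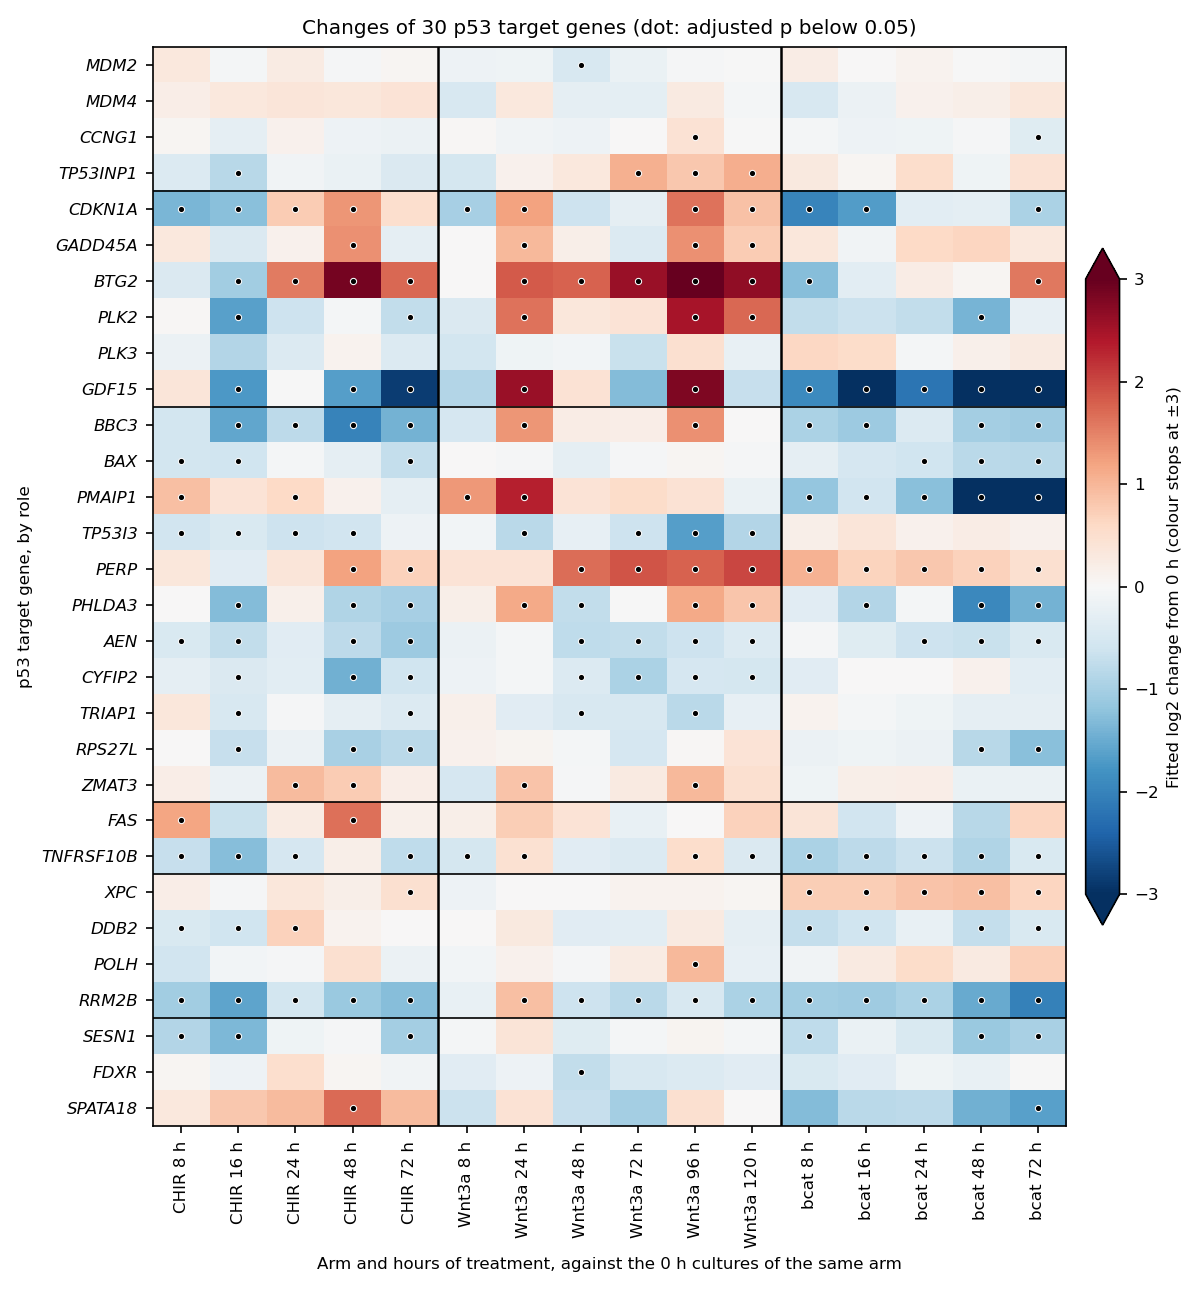
Fitted log2 change from 0 h of each member (rows, grouped by role) in each arm and time (columns), with the colour stopped at 3 in either direction and a dot where the adjusted p is below 0.05. BTG2 and PERP stand out as red in several columns, and RRM2B is blue in all called columns except Wnt3a 24 h, while MDM4 and PLK3 have no dot.

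Of the 4 genes of the MDM2 loop and of p53 regulation, MDM2 was called at 1 of the 16 times, CCNG1 at 2 and TP53INP1 at 4. MDM2 encodes the ubiquitin ligase of p53. MDM2 with CHIR99021 had 98.2 and 100.2 CPM at 0 h, 119 and 129 at 8 h, 91.04 and 97.5 at 16 h, 112 and 123 at 24 h, 92.6 and 100.0 at 48 h, 105 and 103 at 72 h. MDM2 with Wnt3a had 99.9 and 136 CPM at 0 h, 106 and 109.9 at 8 h, 113 and 105 at 24 h, 90.5 and 82.1 at 48 h, 104 at 72 h, 118 and 116 at 96 h, 105 and 132 at 120 h. MDM2 in the bcat arm had 73.8 and 79.5 CPM at 0 h, 90.7 and 90.3 at 8 h, 85.5 and 67.9 at 16 h, 80.4 and 85.6 at 24 h, 79.9 and 72.9 at 48 h, 83.9 and 63.4 at 72 h. The libraries of the 3 arms lay between 63.4 and 136.5 CPM, and the bcat arm was at or below 90.7 CPM throughout. MDM2 with Wnt3a fell at 48 h (log2 change -0.48 ± 0.14), adjusted p = 0.013. Its changes that missed the threshold ran from -0.07 to 0.32 with CHIR99021 and from -0.06 to 0.23 in the bcat arm. For MDM2 with Wnt3a the call was lost at 48 h without 0 h replicate 2 (-0.21) or 48 h replicate 2 (-0.42).

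MDM4, the relative of MDM2 that binds p53 and masks its activating region, stood at 27.7 to 94.8 CPM over the 37 libraries. MDM4 was called at 0 of the 16 times by edgeR (2 at an unadjusted p below 0.05, 1 by DESeq2), with changes from -0.47 to 0.40. CCNG1, which encodes cyclin G1, stood at 387 to 728 CPM. CCNG1 with Wnt3a rose at 96 h (log2 change 0.43 ± 0.13), adjusted p = 0.00912. CCNG1 in the bcat arm fell at 72 h (log2 change -0.37 ± 0.13), adjusted p = 0.03. For CCNG1 with Wnt3a the call was lost at 96 h without 0 h replicate 1 (0.28) or 96 h replicate 1 (0.36). For CCNG1 in the bcat arm the call was lost at 72 h without 0 h replicate 2 (-0.32) or 72 h replicate 2 (-0.15), and the change at 72 h was -0.64 without 72 h replicate 1. TP53INP1 encodes a nuclear protein that promotes the phosphorylation of p53, and its level ran from 8.77 to 35.03 CPM. TP53INP1 with CHIR99021 fell at 16 h (log2 change -0.83 ± 0.19), adjusted p = 0.00261. TP53INP1 with Wnt3a rose at 72, 96 and 120 h (log2 change 1.06 ± 0.23, 0.81 ± 0.20 and 1.08 ± 0.20), adjusted p from 0.000124 to 0.00158. Both 120 h libraries of TP53INP1 with Wnt3a were above every earlier library of that arm up to 48 h. For TP53INP1 with CHIR99021 the call was lost at 16 h without 16 h replicate 2 (-0.71). For TP53INP1 with Wnt3a the call was lost at 96 h without 0 h replicate 2 (0.74) or 96 h replicate 2 (0.47).

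Among the 6 genes of growth arrest and growth signals, BTG2 rose by the most and CDKN1A turned from lower to higher within 2 arms. CDKN1A encodes p21, the inhibitor of cyclin-dependent kinases through which p53 halts the cell cycle. CDKN1A with CHIR99021 had 17.04 and 20.2 CPM at 0 h, 7.54 and 6.83 at 8 h, 7.14 and 8.46 at 16 h, 30.2 and 32.6 at 24 h, 55.4 and 38.03 at 48 h, 23.5 and 30.02 at 72 h. CDKN1A with Wnt3a had 3.88 and 6.71 CPM at 0 h, 2.45 and 3.51 at 8 h, 11.6 and 16.3 at 24 h, 3.15 and 4.44 at 48 h, 4.97 at 72 h, 16.99 and 20.1 at 96 h, 10.7 and 11.6 at 120 h. CDKN1A in the bcat arm had 8.23 and 8.99 CPM at 0 h, 2.48 and 1.67 at 8 h, 2.47 and 3.24 at 16 h, 6.202 and 7.56 at 24 h, 6.497 and 7.84 at 48 h, 5.05 and 3.796 at 72 h. Both treated libraries lay below both 0 h libraries at 8 h in all 3 arms, and above them at 24, 48 and 72 h with CHIR99021 and at 24, 96 and 120 h with Wnt3a. CDKN1A with CHIR99021 fell at 8 and 16 h (log2 change -1.37 ± 0.22 and -1.25 ± 0.23) and rose at 24 and 48 h (log2 change 0.75 ± 0.22 and 1.33 ± 0.21), adjusted p from 1.02e-05 to 0.0155. CDKN1A with Wnt3a fell at 8 h (log2 change -0.99 ± 0.25) and rose at 24, 96 and 120 h (log2 change 1.21 ± 0.25, 1.62 ± 0.24 and 0.88 ± 0.25), adjusted p from 3.52e-06 to 0.022. CDKN1A in the bcat arm fell at 8, 16 and 72 h (log2 change -1.97 ± 0.29, -1.67 ± 0.29 and -0.96 ± 0.29), adjusted p from 1.06e-05 to 0.012. The CHIR99021 libraries had more CDKN1A at 0 h than those of the other arms, with no overlap. For CDKN1A with CHIR99021 the call was lost at 24 h without 0 h replicate 1 (0.64) or 24 h replicate 2 (0.69). For CDKN1A with Wnt3a the call was lost at 8 h without 0 h replicate 2 (-0.35) or 8 h replicate 1 (-0.78), and the change at 24 and 120 h was 1.85 and 1.52 without 0 h replicate 2. For CDKN1A in the bcat arm the call was lost at 72 h without 0 h replicate 2 (-0.88) or 72 h replicate 2 (-0.78).

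BTG2 encodes an antiproliferative protein that helps to shorten mRNA tails. BTG2 with CHIR99021 had 8.195 and 9.298 CPM at 0 h, 6.45 and 6.54 at 8 h, 4.62 and 4.03 at 16 h, 26.8 and 25.5 at 24 h, 73.6 and 55.7 at 48 h, 31.03 and 27.1 at 72 h. BTG2 with Wnt3a had 2.26 and 4.62 CPM at 0 h, 4.16 and 4.33 at 8 h, 15.1 and 15.1 at 24 h, 12.6 and 15.6 at 48 h, 25.02 at 72 h, 41.6 and 46.9 at 96 h, 23.1 and 29.97 at 120 h. BTG2 in the bcat arm had 4.12 and 3.75 CPM at 0 h, 1.74 and 1.28 at 8 h, 3.27 and 2.86 at 16 h, 4.603 and 4.51 at 24 h, 4.22 and 3.79 at 48 h, 12.3 and 10.9 at 72 h. With CHIR99021 the 48 h libraries were the highest of the study, and with Wnt3a the highest were those of 96 h. BTG2 with CHIR99021 fell at 16 h (log2 change -1.04 ± 0.19) and rose at 24, 48 and 72 h (log2 change 1.57 ± 0.18, 2.88 ± 0.18 and 1.73 ± 0.17), adjusted p from 4.78e-14 to 0.00026. BTG2 with Wnt3a rose at 24, 48, 72, 96 and 120 h (log2 change 1.84 ± 0.20, 1.77 ± 0.20, 2.58 ± 0.22, 3.40 ± 0.20 and 2.66 ± 0.20), adjusted p from 7.17e-14 to 1.05e-07. BTG2 in the bcat arm fell at 8 h (log2 change -1.27 ± 0.28) and rose at 72 h (log2 change 1.59 ± 0.24), adjusted p from 5.8e-06 to 0.00147. The bcat libraries from 16 to 48 h stayed within 2.86 to 4.60 CPM, close to the 0 h pair. BTG2 kept all 11 calls with any 1 library left out, but its Wnt3a 24 h change ran from 1.72 to 2.73.

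PLK2 encodes a polo-like kinase of the stress response. PLK2 with CHIR99021 had 8.25 and 8.97 CPM at 0 h, 9.99 and 7.64 at 8 h, 2.43 and 2.98 at 16 h, 5.67 and 5.51 at 24 h, 8.59 and 8.11 at 48 h, 5.23 and 5.12 at 72 h. PLK2 with Wnt3a had 13.3 and 5.55 CPM at 0 h, 6.29 and 5.22 at 8 h, 24.2 and 23.5 at 24 h, 10.2 and 9.300 at 48 h, 10.2 at 72 h, 48.2 and 37.1 at 96 h, 28.1 and 22.9 at 120 h. PLK2 in the bcat arm had 8.82 and 5.67 CPM at 0 h, 4.197 and 3.83 at 8 h, 4.72 and 3.81 at 16 h, 3.96 and 4.18 at 24 h, 2.51 and 2.74 at 48 h, 5.35 and 6.22 at 72 h. The Wnt3a libraries of 24, 96 and 120 h were above all others of the study, and the 0 h pair of that arm differed widely. PLK2 with CHIR99021 fell at 16 and 72 h (log2 change -1.64 ± 0.26 and -0.73 ± 0.24), adjusted p from 2.48e-05 to 0.022. PLK2 with Wnt3a rose at 24, 96 and 120 h (log2 change 1.63 ± 0.26, 2.47 ± 0.26 and 1.73 ± 0.26), adjusted p from 5.69e-09 to 2.51e-05. PLK2 in the bcat arm fell at 48 h (log2 change -1.39 ± 0.32), adjusted p = 0.00148. The lowest libraries were those of CHIR99021 at 16 h and of the bcat arm at 48 h. For PLK2 with CHIR99021 the call was lost at 72 h whichever library was left out (-0.79 to -0.67). For PLK2 with Wnt3a the change at 24 and 120 h was 0.85 and 0.94 without 0 h replicate 2. Its relative PLK3 stood at 1.39 to 7.14 CPM, and was called at 0 of the 16 times by edgeR (1 at an unadjusted p below 0.05, 0 by DESeq2), with changes from -0.87 to 0.62.

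GDF15 encodes a secreted hormone of the TGF-beta family that cells make under stress. GDF15 with CHIR99021 had 3.57 and 3.38 CPM at 0 h, 4.19 and 4.74 at 8 h, 0.649 and 1.31 at 16 h, 3.19 and 3.64 at 24 h, 1.38 and 0.762 at 48 h, 0.521 and 0.388 at 72 h. GDF15 with Wnt3a had 1.29 and 1.63 CPM at 0 h, 0.694 and 0.972 at 8 h, 7.14 and 11.6 at 24 h, 1.63 and 2.43 at 48 h, 0.629 at 72 h, 16.3 and 5.29 at 96 h, 0.852 and 1.07 at 120 h. GDF15 in the bcat arm had 2.06 and 1.93 CPM at 0 h, 0.614 and 0.295 at 8 h, 0.156 and 0.0952 at 16 h, 0.511 and 0.3900 at 24 h, 0.114 and 0.392 at 48 h, 0 and 0 at 72 h. These are low levels: the bcat libraries held 7 counts in all at 16 h, 5 at 48 h and 0 at 72 h, against 25 at 0 h. The Wnt3a libraries of 24 and 96 h were the highest of the study, and those of 96 h differed widely from each other. GDF15 with CHIR99021 fell at 16, 48 and 72 h (log2 change -1.73 ± 0.44, -1.66 ± 0.42 and -2.84 ± 0.47), adjusted p from 2.13e-05 to 0.00555. GDF15 with Wnt3a rose at 24 and 96 h (log2 change 2.59 ± 0.44 and 2.79 ± 0.44), adjusted p from 8.79e-06 to 8.99e-05. GDF15 in the bcat arm fell at 8, 16, 24 and 48 h (log2 change -1.92 ± 0.57, -3.76 ± 0.68, -2.18 ± 0.57 and -3.23 ± 0.72), adjusted p from 0.000292 to 0.0158. At 72 h of doxycycline the gene was at least 15-fold lower than at 0 h, with 3 counts over the group in place of the 0. Counting error alone is covered by that bound. For GDF15 with CHIR99021 calls were lost at 16 h without 16 h replicate 1 (-1.40), at 48 h without 48 h replicate 2 (-1.33). For GDF15 with Wnt3a the change at 96 h was 1.76 without 96 h replicate 1. For GDF15 in the bcat arm calls were lost at 8 and 24 h without 0 h replicate 2 (-1.98 and -2.24), at 8 h without 8 h replicate 2 (-1.67), at 24 h without 24 h replicate 2 (-1.94), at 48 h without 48 h replicate 1 (-2.31). GDF15 also lost its calls at bcat 8 h and bcat 24 h (-1.86 and -2.29) without the 4 libraries that stood apart. GADD45A, a small stress protein of growth arrest and DNA repair, ran from 1.76 to 19.9 CPM. GADD45A with CHIR99021 rose at 48 h (log2 change 1.37 ± 0.21), adjusted p = 6.36e-06. GADD45A with Wnt3a rose at 24, 96 and 120 h (log2 change 0.98 ± 0.24, 1.38 ± 0.24 and 0.75 ± 0.24), adjusted p from 2.77e-05 to 0.021. GADD45A in the bcat arm stayed between 1.76 and 4.62 CPM, with no call. For GADD45A with Wnt3a calls were lost at 24 and 120 h without 0 h replicate 2 (1.09 and 0.86), at 24 h without 24 h replicate 2 (0.76), at 120 h without 120 h replicate 1 (0.77) or 120 h replicate 2 (0.77).

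**Figure D3:**
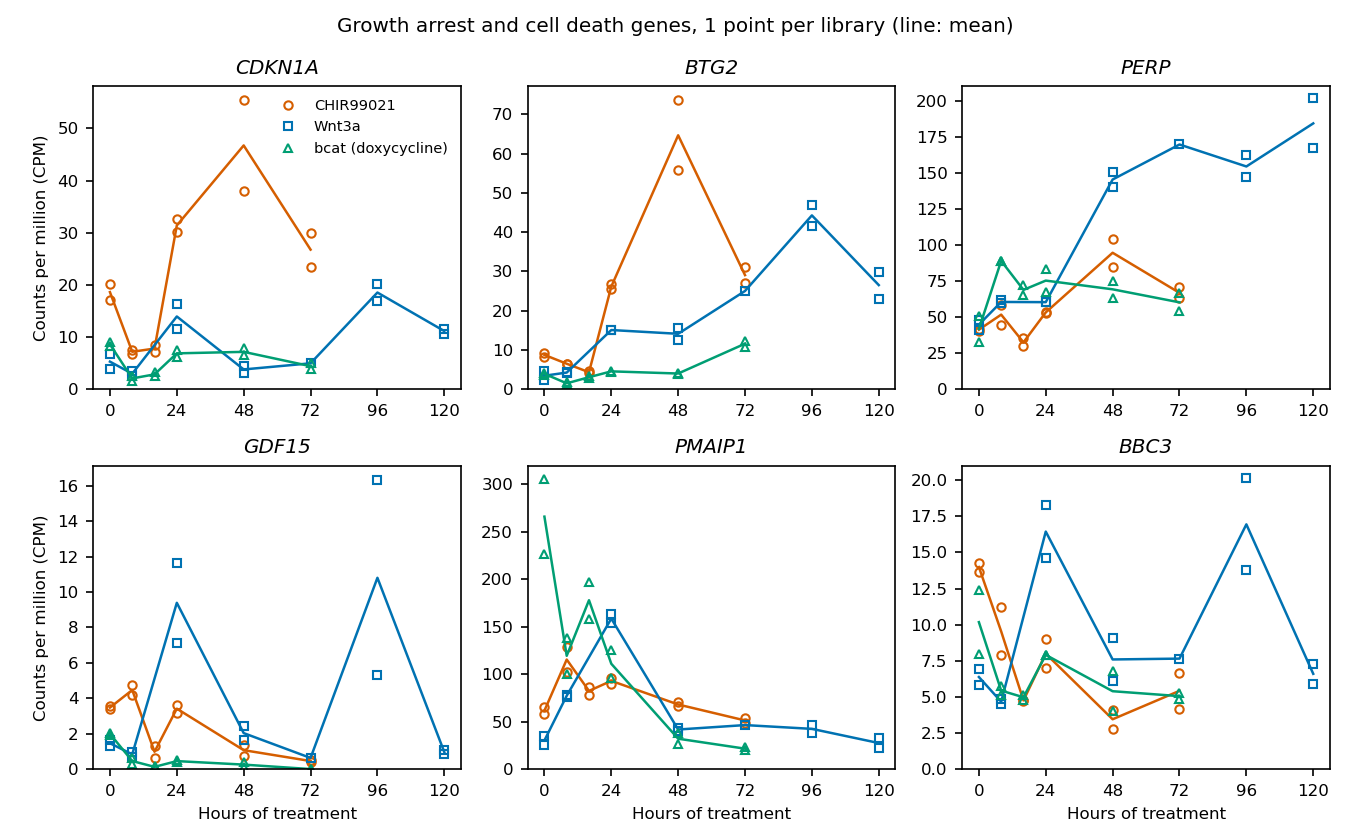
CPM of 6 growth arrest and cell death genes against hours of treatment, with 1 point per library and lines through the group means (circles CHIR99021, squares Wnt3a, triangles bcat). BTG2 peaks at 48 h with CHIR99021 and at 96 h with Wnt3a, PERP is highest in the late Wnt3a libraries, and PMAIP1 starts highest in the bcat arm (227 and 305 CPM) and ends at 19.6 and 23.4 CPM.

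The 11 genes of mitochondrial and other cell death did not move as 1 group: PERP rose in all 3 arms, AEN fell where it was called, and PMAIP1 and BBC3 moved in opposite directions in different arms. BBC3 encodes PUMA, which frees BAX and BAK to open mitochondria. BBC3 with CHIR99021 had 13.7 and 14.3 CPM at 0 h, 11.2 and 7.87 at 8 h, 4.79 and 4.72 at 16 h, 6.97 and 9.01 at 24 h, 4.12 and 2.77 at 48 h, 4.17 and 6.67 at 72 h. BBC3 with Wnt3a had 5.82 and 6.93 CPM at 0 h, 4.49 and 4.84 at 8 h, 14.6 and 18.3 at 24 h, 6.09 and 9.09 at 48 h, 7.65 at 72 h, 20.1 and 13.8 at 96 h, 7.27 and 5.92 at 120 h. BBC3 in the bcat arm had 7.94 and 12.4 CPM at 0 h, 5.76 and 5.11 at 8 h, 4.803 and 5.14 at 16 h, 7.93 and 7.89 at 24 h, 3.99 and 6.79 at 48 h, 4.83 and 5.27 at 72 h. All CHIR99021 libraries from 16 h on were below the 0 h pair, while the Wnt3a libraries of 24 and 96 h were above theirs. BBC3 with CHIR99021 fell at 16, 24, 48 and 72 h (log2 change -1.56 ± 0.27, -0.79 ± 0.26, -2.00 ± 0.27 and -1.42 ± 0.26), adjusted p from 5.31e-07 to 0.0364. BBC3 with Wnt3a rose at 24 and 96 h (log2 change 1.32 ± 0.27 and 1.36 ± 0.27), adjusted p from 0.000188 to 0.000785. BBC3 in the bcat arm fell at 8, 16, 48 and 72 h (log2 change -0.95 ± 0.29, -1.10 ± 0.29, -1.03 ± 0.30 and -1.07 ± 0.30), adjusted p from 0.00718 to 0.0187. The bcat 0 h pair itself spanned 7.94 to 12.4 CPM. For BBC3 with CHIR99021 the call was lost at 24 h whichever library was left out (-1.0 to -0.64). For BBC3 in the bcat arm calls were lost at 8, 16, 48 and 72 h without 0 h replicate 2 (-0.53, -0.68, -0.62 and -0.66), at 8 h without 8 h replicate 1 (-1.06) or 8 h replicate 2 (-0.88), at 16 h without 16 h replicate 1 (-1.05), at 48 h without 48 h replicate 1 (-0.64), at 72 h without 72 h replicate 1 (-1.01).

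PMAIP1 encodes NOXA, which neutralises the survival protein MCL1. PMAIP1 with CHIR99021 had 57.7 and 65.3 CPM at 0 h, 129 and 102 at 8 h, 86.3 and 78.4 at 16 h, 96.2 and 89.7 at 24 h, 70.2 and 65.9 at 48 h, 54.2 and 48.2 at 72 h. PMAIP1 with Wnt3a had 25.9 and 34.4 CPM at 0 h, 78.4 and 76.1 at 8 h, 164 and 154 at 24 h, 40.3 and 43.1 at 48 h, 46.4 at 72 h, 38.2 and 46.5 at 96 h, 22.3 and 32.6 at 120 h. PMAIP1 in the bcat arm had 227 and 305 CPM at 0 h, 100.3 and 138 at 8 h, 198 and 158 at 16 h, 96.03 and 126 at 24 h, 37.6 and 26.4 at 48 h, 19.6 and 23.4 at 72 h. The 3 arms began far apart: the bcat line had 227 and 305 CPM before induction, above every library of the other 2 arms. By 72 h the bcat libraries were below those of CHIR99021 and Wnt3a at that time. PMAIP1 with CHIR99021 rose at 8 and 24 h (log2 change 0.91 ± 0.19 and 0.59 ± 0.19), adjusted p from 0.000793 to 0.0347. PMAIP1 with Wnt3a rose at 8 and 24 h (log2 change 1.29 ± 0.20 and 2.33 ± 0.21), adjusted p from 4.96e-09 to 0.000132. PMAIP1 in the bcat arm fell at 8, 16, 24, 48 and 72 h (log2 change -1.17 ± 0.19, -0.58 ± 0.19, -1.26 ± 0.19, -3.04 ± 0.21 and -3.64 ± 0.22), adjusted p from 3.38e-13 to 0.0445. PMAIP1 thus rose with both added agents at 8 and 24 h and fell at all 5 times in the bcat arm, from a starting level that also differed. For PMAIP1 with CHIR99021 the call was lost at 24 h whichever library was left out (0.51 to 0.69). For PMAIP1 in the bcat arm the call was lost at 16 h without 0 h replicate 2 (-0.35) or 16 h replicate 1 (-0.76) or 16 h replicate 2 (-0.43).

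BAX encodes the protein that forms the pore in the outer mitochondrial membrane. BAX with CHIR99021 had 54.9 and 58.2 CPM at 0 h, 32.5 and 45.1 at 8 h, 31.7 and 42.3 at 16 h, 51.8 and 56.5 at 24 h, 51.5 and 42.1 at 48 h, 32.9 and 35.9 at 72 h. BAX with Wnt3a had 40.1 and 42.4 CPM at 0 h, 42.4 and 41.04 at 8 h, 39.5 and 41.99 at 24 h, 35.5 and 33.96 at 48 h, 40.3 at 72 h, 41.04 and 44.7 at 96 h, 37.7 and 43.7 at 120 h. BAX in the bcat arm had 53.5 and 50.8 CPM at 0 h, 46.7 and 38.9 at 8 h, 37.8 and 35.7 at 16 h, 27.8 and 40.8 at 24 h, 25.5 and 33.97 at 48 h, 30.1 and 28.5 at 72 h. The Wnt3a libraries stayed within 34.0 to 44.7 CPM, whereas 72 h libraries of the other arms lay below their 0 h pairs. BAX with CHIR99021 fell at 8, 16 and 72 h (log2 change -0.55 ± 0.16, -0.60 ± 0.17 and -0.72 ± 0.17), adjusted p from 0.00127 to 0.0151. BAX in the bcat arm fell at 24, 48 and 72 h (log2 change -0.59 ± 0.17, -0.82 ± 0.18 and -0.83 ± 0.18), adjusted p from 0.000661 to 0.0214. With Wnt3a its changes ran from -0.26 to 0.05, with no call. For BAX with CHIR99021 calls were lost at 8 and 16 h without 0 h replicate 2 (-0.51 and -0.56), at 8 h without 8 h replicate 1 (-0.33), at 16 h without 16 h replicate 1 (-0.41). For BAX in the bcat arm calls were lost at 24 h without 0 h replicate 1 (-0.56) or 0 h replicate 2 (-0.63) or 24 h replicate 1 (-0.38), at 48 h without 48 h replicate 1 (-0.61), and the change at 24 h was -0.91 without 24 h replicate 2.

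PERP encodes a membrane protein of desmosomes that also takes part in p53-driven death. PERP with CHIR99021 had 40.6 and 42.1 CPM at 0 h, 58.7 and 44.9 at 8 h, 35.4 and 29.7 at 16 h, 52.8 and 53.9 at 24 h, 104 and 85.1 at 48 h, 70.7 and 63.1 at 72 h. PERP with Wnt3a had 41.4 and 48.3 CPM at 0 h, 61.7 and 59.5 at 8 h, 60.5 and 60.4 at 24 h, 151 and 140.5 at 48 h, 169.9 at 72 h, 162 and 147 at 96 h, 202 and 167 at 120 h. PERP in the bcat arm had 32.9 and 50.7 CPM at 0 h, 89 and 89.2 at 8 h, 65.6 and 72.4 at 16 h, 83.6 and 67.3 at 24 h, 75.1 and 63.6 at 48 h, 66.6 and 54.1 at 72 h. Every Wnt3a library from 48 h on had at least 140.5 CPM, above all libraries of the other arms. PERP with CHIR99021 rose at 48 and 72 h (log2 change 1.2 ± 0.16 and 0.70 ± 0.16), adjusted p from 2.84e-07 to 0.000922. PERP with Wnt3a rose at 48, 72, 96 and 120 h (log2 change 1.67 ± 0.16, 1.89 ± 0.19, 1.76 ± 0.16 and 2.01 ± 0.16), adjusted p from 6.47e-11 to 5.5e-09. PERP in the bcat arm rose at 8, 16, 24, 48 and 72 h (log2 change 1.05 ± 0.17, 0.67 ± 0.17, 0.80 ± 0.17, 0.69 ± 0.17 and 0.49 ± 0.17), adjusted p from 2.64e-05 to 0.0294. PERP is known from epithelial junctions as well as from the p53 response. For PERP in the bcat arm calls were lost at 16, 48 and 72 h without 0 h replicate 1 (0.44, 0.48 and 0.28), at 16 h without 16 h replicate 2 (0.61), at 48 h without 48 h replicate 1 (0.56), at 72 h without 72 h replicate 1 (0.32), and the change at 16, 48 and 72 h was 1.06, 1.08 and 0.88 without 0 h replicate 2. PERP also lost its call at bcat 24 h (0.41) without the 4 libraries that stood apart.

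TP53I3 encodes a quinone oxidoreductase that generates reactive oxygen. TP53I3 with CHIR99021 had 18.1 and 16.9 CPM at 0 h, 11.6 and 12 at 8 h, 11.7 and 13.8 at 16 h, 10.8 and 11.6 at 24 h, 10.9 and 12.6 at 48 h, 15.3 and 16.3 at 72 h. TP53I3 with Wnt3a had 27.5 and 27.96 CPM at 0 h, 24.3 and 27.9 at 8 h, 15.1 and 16.3 at 24 h, 25.9 and 21.5 at 48 h, 18.3 at 72 h, 8.23 and 9.41 at 96 h, 15.3 and 15.1 at 120 h. TP53I3 in the bcat arm had 11.8 and 15.3 CPM at 0 h, 16.2 and 14.9 at 8 h, 16.9 and 19.1 at 16 h, 14.6 and 15.6 at 24 h, 15.7 and 16.9 at 48 h, 16.5 and 13.8 at 72 h. The bcat libraries overlapped from time to time, while the Wnt3a libraries of 96 h were the lowest of the study. TP53I3 with CHIR99021 fell at 8, 16, 24 and 48 h (log2 change -0.57 ± 0.15, -0.45 ± 0.15, -0.63 ± 0.15 and -0.58 ± 0.15), adjusted p from 0.00254 to 0.0374. TP53I3 with Wnt3a fell at 24, 72, 96 and 120 h (log2 change -0.82 ± 0.15, -0.61 ± 0.18, -1.65 ± 0.16 and -0.87 ± 0.15), adjusted p from 7.96e-10 to 0.0194. Its changes in the bcat arm, from 0.12 to 0.36, gave no call. For TP53I3 with CHIR99021 calls were lost at 8 h without 8 h replicate 1 (-0.54), at 16 h whichever library was left out (-0.55 to -0.33). For TP53I3 with Wnt3a the call was lost at 72 h without 0 h replicate 2 (-0.59).

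PHLDA3 encodes a lipid-binding protein that restrains the survival kinase AKT. PHLDA3 with CHIR99021 had 18.3 and 20.1 CPM at 0 h, 18.4 and 20.8 at 8 h, 8.28 and 7.41 at 16 h, 17.9 and 24.5 at 24 h, 11.1 and 9.25 at 48 h, 8.79 and 10.6 at 72 h. PHLDA3 with Wnt3a had 7.12 and 10.8 CPM at 0 h, 9.898 and 12 at 8 h, 17.9 and 24.98 at 24 h, 5.88 and 5.71 at 48 h, 9.66 at 72 h, 19.4 and 23.6 at 96 h, 14.9 and 19.6 at 120 h. PHLDA3 in the bcat arm had 12.3 and 8.67 CPM at 0 h, 8.78 and 6.88 at 8 h, 4.72 and 6.67 at 16 h, 7.86 and 11.3 at 24 h, 2.51 and 2.87 at 48 h, 4.53 and 2.85 at 72 h. With Wnt3a the 24, 96 and 120 h libraries were above the 0 h pair and the 48 h pair below it. PHLDA3 with CHIR99021 fell at 16, 48 and 72 h (log2 change -1.30 ± 0.24, -0.91 ± 0.23 and -1.0 ± 0.23), adjusted p from 0.000168 to 0.00202. PHLDA3 with Wnt3a fell at 48 h (log2 change -0.75 ± 0.26) and rose at 24, 96 and 120 h (log2 change 1.14 ± 0.24, 1.14 ± 0.24 and 0.83 ± 0.24), adjusted p from 0.000313 to 0.0429. PHLDA3 in the bcat arm fell at 16, 48 and 72 h (log2 change -0.87 ± 0.28, -1.93 ± 0.31 and -1.42 ± 0.30), adjusted p from 2.03e-05 to 0.0373. The lowest libraries were both of the bcat arm at 48 h and replicate 2 at 72 h. For PHLDA3 with Wnt3a calls were lost at 48 h without 0 h replicate 2 (-0.30) or 48 h replicate 1 (-0.77) or 48 h replicate 2 (-0.73), at 120 h without 0 h replicate 1 (0.71) or 120 h replicate 2 (0.64), and the change at 120 h was 1.28 without 0 h replicate 2. For PHLDA3 in the bcat arm the call was lost at 16 h without 0 h replicate 1 (-0.66) or 16 h replicate 1 (-0.60).

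AEN encodes a nuclease that enhances cell death. AEN with CHIR99021 had 179 and 190.1 CPM at 0 h, 137 and 132 at 8 h, 108 and 111 at 16 h, 143 and 149 at 24 h, 119 and 94.6 at 48 h, 87.2 and 85.6 at 72 h. AEN with Wnt3a had 107 and 138 CPM at 0 h, 107 and 112 at 8 h, 106 and 131 at 24 h, 79.97 and 67.7 at 48 h, 74.3 at 72 h, 85.3 and 77.3 at 96 h, 94.8 and 93.6 at 120 h. AEN in the bcat arm had 79.7 and 86.02 CPM at 0 h, 84.5 and 77.7 at 8 h, 67.5 and 61.8 at 16 h, 52.2 and 56.6 at 24 h, 54.3 and 50.3 at 48 h, 66.6 and 54.7 at 72 h. No treated group lay above its 0 h pair, and the 0 h libraries of CHIR99021 were the highest of the study. AEN with CHIR99021 fell at 8, 16, 48 and 72 h (log2 change -0.46 ± 0.12, -0.75 ± 0.13, -0.79 ± 0.13 and -1.09 ± 0.13), adjusted p from 4.96e-08 to 0.00745. AEN with Wnt3a fell at 48, 72, 96 and 120 h (log2 change -0.76 ± 0.13, -0.74 ± 0.16, -0.61 ± 0.13 and -0.40 ± 0.13), adjusted p from 6.83e-05 to 0.0196. AEN in the bcat arm fell at 24, 48 and 72 h (log2 change -0.61 ± 0.13, -0.67 ± 0.13 and -0.45 ± 0.13), adjusted p from 0.000404 to 0.0111. AEN fell at 11 of the 16 times, and its other changes were not called. For AEN with CHIR99021 the call was lost at 8 h without 0 h replicate 2 (-0.41) or 8 h replicate 2 (-0.43). For AEN with Wnt3a calls were lost at 72, 96 and 120 h without 0 h replicate 2 (-0.53, -0.40 and -0.19), at 120 h without 120 h replicate 2 (-0.38). For AEN in the bcat arm the call was lost at 72 h without 0 h replicate 2 (-0.39) or 72 h replicate 2 (-0.32).

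CYFIP2 encodes a part of the WAVE complex, which builds the actin network. CYFIP2 with CHIR99021 had 71.8 and 68.2 CPM at 0 h, 54.1 and 62.2 at 8 h, 51.6 and 52.3 at 16 h, 53.7 and 58.5 at 24 h, 26.6 and 25.4 at 48 h, 44.3 and 48.01 at 72 h. CYFIP2 with Wnt3a had 63.1 and 64.8 CPM at 0 h, 57.7 and 57.5 at 8 h, 60.1 and 62.6 at 24 h, 58.3 and 38.7 at 48 h, 33.2 at 72 h, 39.8 and 49.97 at 96 h, 45.6 and 43.7 at 120 h. CYFIP2 in the bcat arm had 44.4 and 54.6 CPM at 0 h, 41.4 and 36.6 at 8 h, 50.7 and 49.4 at 16 h, 48.8 and 52.3 at 24 h, 49.3 and 60.5 at 48 h, 41.2 and 39.2 at 72 h. The CHIR99021 libraries of 48 h were the lowest of the study. CYFIP2 with CHIR99021 fell at 16, 48 and 72 h (log2 change -0.43 ± 0.14, -1.43 ± 0.14 and -0.60 ± 0.14), adjusted p from 2.36e-09 to 0.0346. CYFIP2 with Wnt3a fell at 48, 72, 96 and 120 h (log2 change -0.42 ± 0.15, -0.95 ± 0.18, -0.51 ± 0.15 and -0.52 ± 0.15), adjusted p from 0.000313 to 0.0489. Its bcat changes, from -0.35 to 0.12, were not called. For CYFIP2 with CHIR99021 the call was lost at 16 h whichever library was left out (-0.47 to -0.39). For CYFIP2 with Wnt3a calls were lost at 48 h without 0 h replicate 1 (-0.42) or 48 h replicate 2 (-0.15), at 48, 96 and 120 h without 0 h replicate 2 (-0.40, -0.49 and -0.50), at 96 h without 96 h replicate 1 (-0.36), at 120 h without 120 h replicate 2 (-0.48), and the change at 48 h was -0.73 without 48 h replicate 1.

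RPS27L encodes a close relative of the ribosomal protein RPS27, and because the sequences are so alike the assignment of reads between the copies is uncertain. RPS27L with CHIR99021 had 43.8 and 47.7 CPM at 0 h, 43.5 and 47.9 at 8 h, 31 and 26.2 at 16 h, 36.3 and 44.8 at 24 h, 24.99 and 21.2 at 48 h, 25.4 and 26.7 at 72 h. RPS27L with Wnt3a had 38.5 and 35.8 CPM at 0 h, 42.5 and 38.2 at 8 h, 36.1 and 41.4 at 24 h, 38.1 and 33.5 at 48 h, 26.03 at 72 h, 36.8 and 39.01 at 96 h, 43.8 and 54.9 at 120 h. RPS27L in the bcat arm had 34.99 and 44.3 CPM at 0 h, 33.2 and 38.6 at 8 h, 40.2 and 32.1 at 16 h, 31.4 and 39.3 at 24 h, 26.3 and 18.03 at 48 h, 19.2 and 14.2 at 72 h. The lowest library was replicate 2 of the bcat arm at 72 h, and the other low ones were bcat 48 h replicate 2 and bcat 72 h replicate 1. RPS27L with CHIR99021 fell at 16, 48 and 72 h (log2 change -0.69 ± 0.17, -0.98 ± 0.17 and -0.82 ± 0.17), adjusted p from 2.99e-05 to 0.00501. RPS27L in the bcat arm fell at 48 and 72 h (log2 change -0.84 ± 0.19 and -1.25 ± 0.19), adjusted p from 6.09e-06 to 0.0012. With Wnt3a its changes ran from -0.50 to 0.42, with no call. For RPS27L with CHIR99021 the call was lost at 16 h without 0 h replicate 2 (-0.62) or 16 h replicate 2 (-0.54). For RPS27L in the bcat arm the call was lost at 48 h without 0 h replicate 2 (-0.63).

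TRIAP1, which shuttles lipids into mitochondria and protects from cell death, stood at 17.7 to 48.2 CPM. TRIAP1 with CHIR99021 fell at 16 and 72 h (log2 change -0.49 ± 0.15 and -0.41 ± 0.15), adjusted p from 0.0286 to 0.0493. TRIAP1 with Wnt3a fell at 48 and 96 h (log2 change -0.48 ± 0.16 and -0.82 ± 0.16), adjusted p from 0.000114 to 0.0372. For TRIAP1 with CHIR99021 calls were lost at 16 h without 0 h replicate 1 (-0.47) or 0 h replicate 2 (-0.50) or 16 h replicate 2 (-0.30), at 72 h whichever library was left out (-0.42 to -0.39). For TRIAP1 with Wnt3a calls were lost at 48 and 96 h without 0 h replicate 2 (-0.21 and -0.55), at 48 h without 48 h replicate 1 (-0.52) or 48 h replicate 2 (-0.44). ZMAT3, an RNA-binding zinc finger protein, ran from 6.38 to 27.2 CPM. ZMAT3 with CHIR99021 rose at 24 and 48 h (log2 change 0.96 ± 0.21 and 0.76 ± 0.21), adjusted p from 0.00185 to 0.00532. ZMAT3 with Wnt3a rose at 24 and 96 h (log2 change 0.85 ± 0.24 and 0.98 ± 0.23), adjusted p from 0.00115 to 0.00966. ZMAT3 in the bcat arm was not called, with changes from -0.20 to 0.20. For ZMAT3 with CHIR99021 the call was lost at 48 h without 48 h replicate 1 (0.67). For ZMAT3 with Wnt3a calls were lost at 24 and 96 h without 0 h replicate 2 (0.69 and 0.82), at 24 h without 24 h replicate 2 (0.61), at 96 h without 96 h replicate 2 (0.67).

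Both death receptors are cell surface proteins that pass a death signal inward when their ligands bind, and at 8 h of CHIR99021 FAS rose while TNFRSF10B fell. FAS encodes the receptor of the FAS ligand. FAS with CHIR99021 had 2.41 and 2.13 CPM at 0 h, 5.61 and 4.74 at 8 h, 1.14 and 1.63 at 16 h, 1.89 and 3.28 at 24 h, 7.97 and 6.31 at 48 h, 2.47 and 2.56 at 72 h. FAS with Wnt3a had 1.62 and 1.703 CPM at 0 h, 2.22 and 1.65 at 8 h, 2.85 and 2.77 at 24 h, 2.94 and 1.76 at 48 h, 1.45 at 72 h, 1.35 and 2.03 at 96 h, 2.23 and 3.28 at 120 h. FAS in the bcat arm had 1.76 and 2.57 CPM at 0 h, 3.71 and 1.97 at 8 h, 1.01 and 2.38 at 16 h, 1.92 and 2.17 at 24 h, 1.25 and 1.31 at 48 h, 4.68 and 2.32 at 72 h. The CHIR99021 libraries of 8 and 48 h were the highest of the study. FAS with CHIR99021 rose at 8 and 48 h (log2 change 1.19 ± 0.36 and 1.66 ± 0.36), adjusted p from 0.00044 to 0.0147. Its reads may include those of the overlapping gene ACTA2, since the handling of strand in the counting is not given in the sources used here. For FAS with CHIR99021 the call was lost at 8 h without 0 h replicate 1 (1.28) or 0 h replicate 2 (1.10) or 8 h replicate 1 (1.06).

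TNFRSF10B encodes the TRAIL receptor DR5. TNFRSF10B with CHIR99021 had 127 and 139 CPM at 0 h, 76.7 and 90.1 at 8 h, 53.7 and 56.3 at 16 h, 86.9 and 101.3 at 24 h, 163 and 137 at 48 h, 80.6 and 75.8 at 72 h. TNFRSF10B with Wnt3a had 70.2 and 69.8 CPM at 0 h, 44.1 and 52.9 at 8 h, 89.6 and 102 at 24 h, 54.2 and 56.8 at 48 h, 52.97 at 72 h, 111 and 91.4 at 96 h, 49.7 and 54.5 at 120 h. TNFRSF10B in the bcat arm had 81.2 and 87.5 CPM at 0 h, 43.8 and 44.3 at 8 h, 49.6 and 47.9 at 16 h, 52.3 and 55.6 at 24 h, 47.99 and 41.7 at 48 h, 65.8 and 57.7 at 72 h. At 48 h of CHIR99021 the libraries (163 and 137 CPM) overlapped the 0 h pair, and every bcat library after induction was below its 0 h pair. TNFRSF10B with CHIR99021 fell at 8, 16, 24 and 72 h (log2 change -0.68 ± 0.12, -1.27 ± 0.12, -0.50 ± 0.12 and -0.77 ± 0.12), adjusted p from 6.34e-09 to 0.00455. TNFRSF10B with Wnt3a fell at 8 and 120 h (log2 change -0.53 ± 0.13 and -0.43 ± 0.13) and rose at 24 and 96 h (log2 change 0.45 ± 0.13 and 0.53 ± 0.13), adjusted p from 0.00104 to 0.0129. TNFRSF10B in the bcat arm fell at 8, 16, 24, 48 and 72 h (log2 change -0.94 ± 0.13, -0.79 ± 0.13, -0.65 ± 0.13, -0.91 ± 0.13 and -0.45 ± 0.13), adjusted p from 3.5e-06 to 0.00851. At 8 h TNFRSF10B was lower in all 3 arms, with changes from -0.94 to -0.53 on the log2 scale. For TNFRSF10B with CHIR99021 the call was lost at 24 h without 0 h replicate 2 (-0.43) or 24 h replicate 1 (-0.39). For TNFRSF10B with Wnt3a calls were lost at 8, 24 and 120 h without 0 h replicate 2 (-0.53, 0.45 and -0.43), at 8 h without 8 h replicate 1 (-0.40), at 24 h without 24 h replicate 2 (0.36), at 120 h without 120 h replicate 1 (-0.36). For TNFRSF10B in the bcat arm the call was lost at 72 h without 0 h replicate 2 (-0.39) or 72 h replicate 2 (-0.36). TNFRSF10B also lost its call at Wnt3a 8 h (-0.51) without the 4 libraries that stood apart.

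Of the 4 genes of DNA repair and nucleotide supply, RRM2B had the largest number of calls of all members, and XPC was the only one of the 4 to rise in the bcat arm. RRM2B encodes the p53-inducible subunit of ribonucleotide reductase, which makes DNA building blocks outside S phase. RRM2B with CHIR99021 had 107 and 119 CPM at 0 h, 54.99 and 54.3 at 8 h, 37.6 and 37.5 at 16 h, 76.4 and 77.7 at 24 h, 59.3 and 44.99 at 48 h, 47.4 and 46.6 at 72 h. RRM2B with Wnt3a had 75.4 and 84.5 CPM at 0 h, 74.3 and 63.5 at 8 h, 152 and 149.8 at 24 h, 53.5 and 50.8 at 48 h, 45.7 at 72 h, 66.2 and 50.02 at 96 h, 37.9 and 45.1 at 120 h. RRM2B in the bcat arm had 127 and 147 CPM at 0 h, 52.8 and 81.8 at 8 h, 67.6 and 64.5 at 16 h, 63.5 and 77.4 at 24 h, 51.9 and 44.3 at 48 h, 38.5 and 29.1 at 72 h. The Wnt3a libraries of 24 h were the highest of the study, while the bcat pair of 72 h included the lowest library. RRM2B with CHIR99021 fell at 8, 16, 24, 48 and 72 h (log2 change -1.05 ± 0.17, -1.59 ± 0.17, -0.55 ± 0.16, -1.11 ± 0.17 and -1.27 ± 0.17), adjusted p from 3.71e-08 to 0.0204. RRM2B with Wnt3a fell at 48, 72, 96 and 120 h (log2 change -0.63 ± 0.17, -0.82 ± 0.21, -0.47 ± 0.17 and -0.96 ± 0.17) and rose at 24 h (log2 change 0.90 ± 0.17), adjusted p from 8.02e-05 to 0.0263. RRM2B in the bcat arm fell at 8, 16, 24, 48 and 72 h (log2 change -1.05 ± 0.17, -1.06 ± 0.17, -0.96 ± 0.17, -1.51 ± 0.17 and -2.02 ± 0.18), adjusted p from 2.77e-10 to 0.000135. It was called at 15 of the 16 times, 14 of them lower. For RRM2B with CHIR99021 the call was lost at 24 h without 0 h replicate 2 (-0.47) or 24 h replicate 1 (-0.54) or 24 h replicate 2 (-0.57). For RRM2B with Wnt3a calls were lost at 48, 72 and 96 h without 0 h replicate 2 (-0.53, -0.72 and -0.38), at 48 h without 48 h replicate 2 (-0.60), at 96 h without 96 h replicate 2 (-0.32).

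XPC encodes a sensor of bulky DNA lesions in nucleotide excision repair. XPC with CHIR99021 had 27.9 and 30.2 CPM at 0 h, 35.9 and 30.3 at 8 h, 29.4 and 27.9 at 16 h, 35.8 and 37.2 at 24 h, 29.5 and 36.3 at 48 h, 44.3 and 35.8 at 72 h. XPC with Wnt3a had 32.3 and 37.7 CPM at 0 h, 33.4 and 31.01 at 8 h, 37.5 and 34.8 at 24 h, 39.3 and 33.1 at 48 h, 38.6 at 72 h, 32.8 and 43.7 at 96 h, 32.4 and 42.7 at 120 h. XPC in the bcat arm had 22.1 and 27.5 CPM at 0 h, 38.7 and 46.5 at 8 h, 40.7 and 43.2 at 16 h, 44.9 and 47.01 at 24 h, 50.3 and 44.2 at 48 h, 41.8 and 37.1 at 72 h. All bcat libraries after induction were above the 0 h pair of that arm, which was itself below those of the other arms. XPC with CHIR99021 rose at 72 h (log2 change 0.47 ± 0.16), adjusted p = 0.0252. XPC in the bcat arm rose at 8, 16, 24, 48 and 72 h (log2 change 0.74 ± 0.17, 0.73 ± 0.17, 0.86 ± 0.17, 0.91 ± 0.17 and 0.64 ± 0.17), adjusted p from 0.000197 to 0.00536. With Wnt3a its changes ran from -0.15 to 0.11, with no call. For XPC with CHIR99021 the call was lost at 72 h without 0 h replicate 1 (0.42) or 0 h replicate 2 (0.53) or 72 h replicate 1 (0.30). For XPC in the bcat arm calls were lost at 16 and 72 h without 0 h replicate 1 (0.60 and 0.54), at 72 h without 72 h replicate 1 (0.55).

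DDB2 encodes the protein that finds ultraviolet lesions in chromatin, and its start site holds the pair of decamers shown above. DDB2 with CHIR99021 had 31.7 and 35.3 CPM at 0 h, 22.4 and 26.5 at 8 h, 20.8 and 23.5 at 16 h, 47.99 and 59.8 at 24 h, 39.6 and 32.97 at 48 h, 36.4 and 31.4 at 72 h. DDB2 with Wnt3a had 23.9 and 31.4 CPM at 0 h, 30.8 and 27.6 at 8 h, 34.6 and 35.5 at 24 h, 21.8 and 23.3 at 48 h, 23.2 at 72 h, 33.5 and 35.9 at 96 h, 22.1 and 25.3 at 120 h. DDB2 in the bcat arm had 62.05 and 53.4 CPM at 0 h, 33.4 and 36.5 at 8 h, 41.3 and 33.99 at 16 h, 48.9 and 48.5 at 24 h, 33.2 and 36.6 at 48 h, 45.1 and 38.3 at 72 h. With CHIR99021 the order turned between 16 h, below 0 h, and 24 h, above 0 h. All bcat libraries after induction were below the 0 h pair. DDB2 with CHIR99021 fell at 8 and 16 h (log2 change -0.46 ± 0.15 and -0.60 ± 0.15) and rose at 24 h (log2 change 0.69 ± 0.14), adjusted p from 0.000939 to 0.0215. DDB2 in the bcat arm fell at 8, 16, 48 and 72 h (log2 change -0.72 ± 0.15, -0.60 ± 0.15, -0.72 ± 0.15 and -0.46 ± 0.15), adjusted p from 0.000734 to 0.0247. With Wnt3a its changes ran from -0.35 to 0.29, with no call. For DDB2 with CHIR99021 calls were lost at 8 and 16 h without 0 h replicate 2 (-0.38 and -0.51), at 8 h without 8 h replicate 1 (-0.34), at 16 h without 16 h replicate 1 (-0.51), at 24 h without 24 h replicate 2 (0.52). For DDB2 in the bcat arm calls were lost at 16 and 72 h without 0 h replicate 1 (-0.50 and -0.33), at 16 h without 16 h replicate 2 (-0.47), at 72 h without 72 h replicate 2 (-0.34). POLH, the polymerase that copies past ultraviolet lesions, ran from 3.83 to 14.5 CPM. POLH with Wnt3a rose at 96 h (log2 change 0.97 ± 0.38), adjusted p = 0.0449. For POLH with Wnt3a the call was lost at 96 h whichever library was left out (0.82 to 1.12).

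The 3 genes of metabolism and mitochondria had few calls beside those of SESN1. SESN1 encodes sestrin 1, which restrains the growth kinase mTORC1. SESN1 with CHIR99021 had 45.9 and 49.5 CPM at 0 h, 24.9 and 27.1 at 8 h, 17.9 and 19.4 at 16 h, 43.3 and 44.7 at 24 h, 51.04 and 41.8 at 48 h, 24.6 and 21.9 at 72 h. SESN1 with Wnt3a had 19.4 and 20.6 CPM at 0 h, 19.4 and 19.6 at 8 h, 22.5 and 30.3 at 24 h, 16.1 and 15.5 at 48 h, 19.2 at 72 h, 16.8 and 26 at 96 h, 18.7 and 20.3 at 120 h. SESN1 in the bcat arm had 34.4 and 38.6 CPM at 0 h, 22.2 and 21.03 at 8 h, 30.7 and 33.9 at 16 h, 25.6 and 27.99 at 24 h, 17.9 and 15.6 at 48 h, 21.4 and 15.7 at 72 h. With CHIR99021 the libraries of 24 and 48 h were near the 0 h pair, between low groups at 8, 16 and 72 h. SESN1 with CHIR99021 fell at 8, 16 and 72 h (log2 change -0.88 ± 0.16, -1.35 ± 0.17 and -1.03 ± 0.16), adjusted p from 5.05e-07 to 0.000163. SESN1 in the bcat arm fell at 8, 48 and 72 h (log2 change -0.76 ± 0.18, -1.12 ± 0.18 and -0.98 ± 0.18), adjusted p from 2.11e-05 to 0.00207. With Wnt3a its changes ran from -0.36 to 0.39, with no call. For SESN1 in the bcat arm the call was lost at 8 h without 0 h replicate 2 (-0.66). FDXR, the mitochondrial reductase that supplies electrons for steroid and iron-sulphur cluster synthesis, stood at 8.596 to 29.3 CPM. FDXR with Wnt3a fell at 48 h (log2 change -0.74 ± 0.21), adjusted p = 0.0143. For FDXR with Wnt3a the call was lost at 48 h without 0 h replicate 2 (-0.61) or 48 h replicate 1 (-0.56). SPATA18, a factor of mitochondrial quality control, had low levels of 0.741 to 6.36 CPM. SPATA18 with CHIR99021 rose at 48 h (log2 change 1.69 ± 0.41), adjusted p = 0.00168. SPATA18 in the bcat arm fell at 72 h (log2 change -1.64 ± 0.56), adjusted p = 0.0267. For SPATA18 in the bcat arm the call was lost at 72 h without 0 h replicate 1 (-0.84) or 72 h replicate 1 (-1.72) or 72 h replicate 2 (-1.58).

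**Figure D4:**
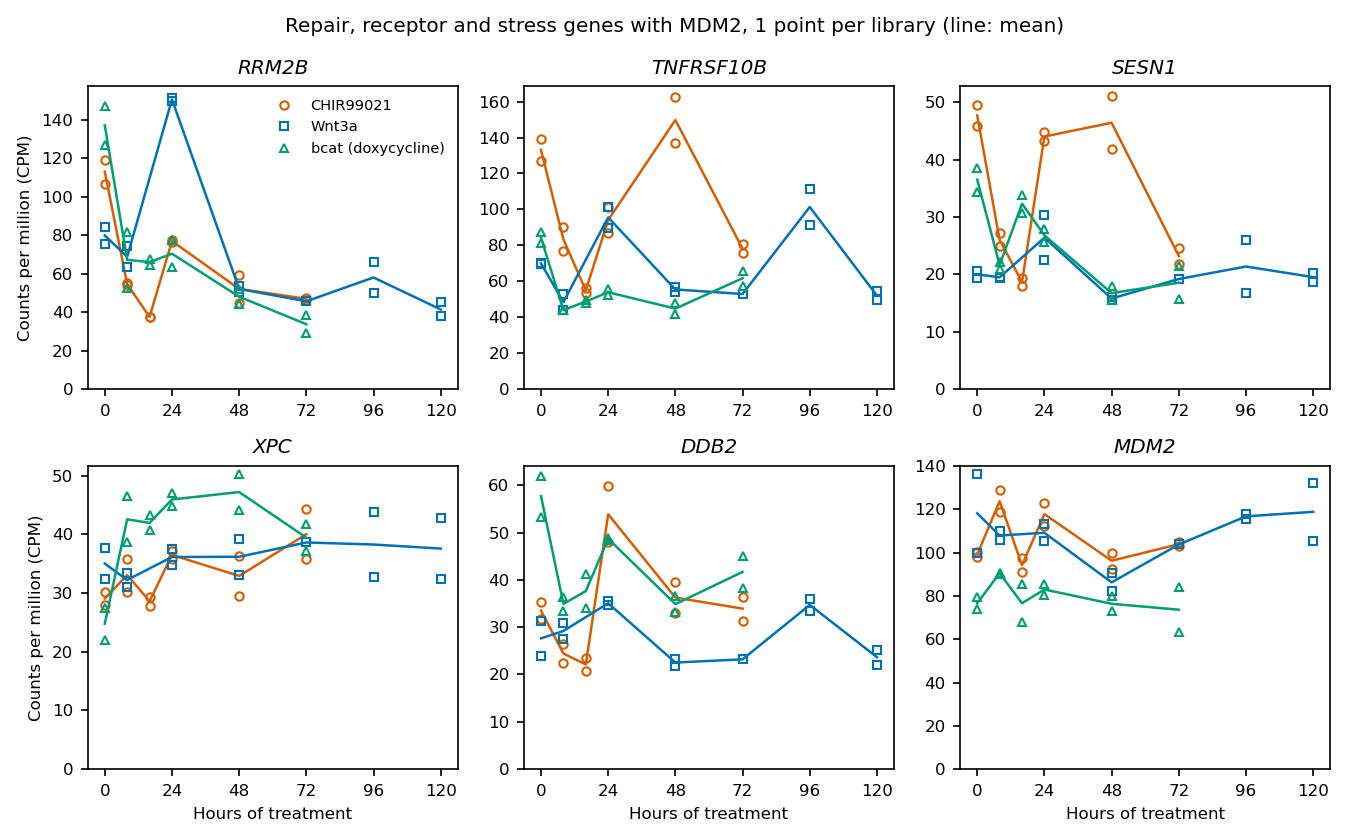
CPM of RRM2B, TNFRSF10B, SESN1, XPC, DDB2 and MDM2 against hours of treatment, with 1 point per library and lines through the group means (circles CHIR99021, squares Wnt3a, triangles bcat). RRM2B at Wnt3a 24 h (152 and 149.8 CPM) and TNFRSF10B at CHIR 48 h (163 and 137 CPM) stand above the other treated groups. MDM2 was called by edgeR at Wnt3a 48 h only.

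The genes that control p53 were read as a list of 28, of which 27 were tested. With CHIR99021 more of them fell than rose at 24 and 72 h. At CHIR 24 h, 3 of the 27 rose and 7 fell (median -0.19), against 5.91% and 8.61% of all genes (median -0.01). At CHIR 72 h, 2 of the 27 rose and 8 fell (median -0.20), against 11.5% and 13.4% of all genes (median 0.00). With Wnt3a more also fell than rose at 24 and 120 h. At Wnt3a 24 h, 2 of the 27 rose and 10 fell (median -0.26), against 9.32% and 10.9% of all genes (median 0.04). At Wnt3a 120 h, 3 of the 27 rose and 7 fell (median -0.20), against 12.2% and 15.6% of all genes (median 0.00). In the bcat arm as many rose as fell at 24 h and at 72 h. At bcat 24 h, 2 of the 27 rose and 2 fell (median 0.06), against 6.87% and 5.95% of all genes (median 0.09). At bcat 72 h, 4 of the 27 rose and 4 fell (median 0.05), against 13.6% and 13.6% of all genes (median 0.06). Over the other 10 times of the 27-gene list, 1 to 5 rose and 0 to 12 fell, against 2.28% to 18.8% and 1.18% to 21% of all genes. Where edgeR's adjusted p gave 0 in a direction at any of the 16 times, an unadjusted p below 0.05 gave 4 and DESeq2 2. TP73, the relative of p53 that binds the same element, fell (-2.27 ± 0.32 at CHIR 24 h, -2.37 ± 0.32 at CHIR 72 h, -3.0 ± 0.30 at bcat 24 h and -4.22 ± 0.35 at bcat 72 h, adjusted p from 5.97e-11 to 4.36e-06). SETD7, a lysine methyltransferase that acts on p53, rose (1.47 ± 0.25 at CHIR 24 h, 2.76 ± 0.25 at CHIR 72 h, 1.38 ± 0.27 at Wnt3a 24 h, 2.37 ± 0.28 at Wnt3a 120 h and 1.98 ± 0.27 at bcat 72 h, adjusted p from 1.34e-09 to 0.000552). HIPK2, a kinase that phosphorylates p53, rose (0.73 ± 0.17 at CHIR 24 h, 1.40 ± 0.17 at CHIR 72 h, 0.61 ± 0.18 at Wnt3a 120 h, 1.15 ± 0.19 at bcat 24 h and 1.40 ± 0.19 at bcat 72 h, adjusted p from 1.36e-07 to 0.011). The call of HIPK2 was lost at Wnt3a 120 h without 0 h replicate 2 (0.34) or 120 h replicate 1 (0.50). With Wnt3a the changes of TP73, from -0.93 to 0.40, were not called. SIRT1, a deacetylase of p53, fell (-0.66 ± 0.13 at CHIR 24 h, -1.21 ± 0.13 at CHIR 72 h, -0.62 ± 0.13 at bcat 24 h and -1.63 ± 0.14 at bcat 72 h, adjusted p from 9.57e-11 to 0.00131). TP53BP1, a DNA break protein that binds p53, fell (-1.31 ± 0.13 at CHIR 24 h and -1.02 ± 0.13 at Wnt3a 24 h, adjusted p from 1.15e-08 to 1.73e-06). PPM1D, the phosphatase that switches p53 signalling off, rose (0.95 ± 0.24 at bcat 72 h, adjusted p = 0.00319). The call of PPM1D was lost at bcat 72 h without 0 h replicate 2 (0.54). CHEK2, a checkpoint kinase, rose (0.46 ± 0.12 at Wnt3a 24 h, adjusted p = 0.00862). The call of CHEK2 was lost at Wnt3a 24 h without 24 h replicate 1 (0.38). At the later time CHEK2 fell (-0.81 ± 0.13 at Wnt3a 120 h, adjusted p = 1.45e-05).

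A list of 43 further p53 targets, all of them tested, was read beside the 30 members. At 24 h of CHIR99021 11.6% of this list was called in either direction, against 14.5% of all genes. At 72 h it was 39.5% against 24.9%, with more genes fallen than risen. CHIR 24 h had 2 of the 43 risen and 3 fallen (median -0.10), beside 5.91% and 8.61% of all genes (median -0.01). CHIR 72 h had 5 of the 43 risen and 12 fallen (median -0.22), beside 11.5% and 13.4% of all genes (median 0.00). With Wnt3a risen genes outnumbered fallen ones at 24 h, and the 2 counts were close at 120 h. Fallen genes outnumbered risen ones at Wnt3a 48 h. Wnt3a 24 h had 10 of the 43 risen and 4 fallen (median 0.24), beside 9.32% and 10.9% of all genes (median 0.04). Wnt3a 120 h had 10 of the 43 risen and 9 fallen (median 0.01), beside 12.2% and 15.6% of all genes (median 0.00). In the bcat arm 6.98% of the list was called at 24 h, against 12.8% of all genes. At 72 h it was 32.6% against 27.3%. bcat 24 h had 1 of the 43 risen and 2 fallen (median -0.08), beside 6.87% and 5.95% of all genes (median 0.09). bcat 72 h had 6 of the 43 risen and 8 fallen (median -0.08), beside 13.6% and 13.6% of all genes (median 0.06). Over the other 10 times of the 43-gene list, 0 to 12 rose and 1 to 14 fell, against 2.28% to 18.8% and 1.18% to 21% of all genes. Where edgeR's adjusted p gave 0 in a direction at any of the 16 times, an unadjusted p below 0.05 gave 1 and DESeq2 0. KITLG, the ligand of the KIT receptor, rose (0.91 ± 0.17 at CHIR 24 h, 1.05 ± 0.17 at CHIR 72 h, 2.65 ± 0.19 at Wnt3a 120 h, 0.82 ± 0.19 at bcat 24 h and 1.62 ± 0.19 at bcat 72 h, adjusted p from 8.11e-12 to 0.00286). The call of KITLG was lost at bcat 24 h without 0 h replicate 2 (0.46). GLS2, a glutaminase of mitochondria, fell (-2.12 ± 0.27 at CHIR 72 h, -2.05 ± 0.29 at Wnt3a 120 h and -2.81 ± 0.31 at bcat 72 h, adjusted p from 2.87e-08 to 2.67e-06). LIF, a cytokine, fell (-1.46 ± 0.36 at CHIR 72 h, -1.90 ± 0.37 at bcat 24 h and -2.62 ± 0.42 at bcat 72 h, adjusted p from 1.38e-05 to 0.00264). TRIM22, an interferon-induced ligase, fell (-1.22 ± 0.30 at bcat 24 h and -1.73 ± 0.32 at bcat 72 h, adjusted p from 0.000132 to 0.00618). The call of TRIM22 was lost at bcat 24 h without 0 h replicate 2 (-1.0) or 24 h replicate 2 (-1.13). PANK1, a kinase of coenzyme A synthesis, fell (-0.63 ± 0.15 at CHIR 24 h, -1.14 ± 0.15 at Wnt3a 24 h and -1.46 ± 0.16 at Wnt3a 120 h, adjusted p from 1.47e-08 to 0.00308). The call of PANK1 was lost at CHIR 24 h without 24 h replicate 1 (-0.56). PRDM1, the transcription factor BLIMP1, rose (7.47 ± 0.67 at Wnt3a 120 h, adjusted p = 2.8e-09). PRDM1 is rare at the start, with 1 and 12 counts in the Wnt3a 0 h libraries.

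Genes that are lowered when p21 lets the DREAM complex form, which drive mitosis, were read as a list of 15. With CHIR99021 fallen genes outnumbered risen ones, with most calls at 8 h. In CHIR 8 h libraries 0 of the 15 rose and 11 fell (median -0.45), where 9.2% and 11.7% of all genes did (median -0.01). In CHIR 24 h libraries 0 of the 15 rose and 3 fell (median -0.26), where 5.91% and 8.61% of all genes did (median -0.01). In CHIR 72 h libraries 0 of the 15 rose and 4 fell (median -0.13), where 11.5% and 13.4% of all genes did (median 0.00). With Wnt3a more rose than fell at 24 h, and most of the list fell at 96 h. In Wnt3a 24 h libraries 3 of the 15 rose and 0 fell (median 0.25), where 9.32% and 10.9% of all genes did (median 0.04). In Wnt3a 96 h libraries 0 of the 15 rose and 12 fell (median -0.54), where 18.8% and 21% of all genes did (median 0.07). In Wnt3a 120 h libraries 1 of the 15 rose and 7 fell (median -0.32), where 12.2% and 15.6% of all genes did (median 0.00). The direction in the bcat arm differed between 24 and 72 h. In bcat 24 h libraries 2 of the 15 rose and 0 fell (median 0.13), where 6.87% and 5.95% of all genes did (median 0.09). In bcat 72 h libraries 0 of the 15 rose and 4 fell (median -0.14), where 13.6% and 13.6% of all genes did (median 0.06). Over the other 8 times of the 15-gene list, 0 to 3 rose and 0 to 8 fell, against 2.28% to 15.7% and 1.18% to 18.1% of all genes. Where edgeR's adjusted p gave 0 in a direction at any of the 16 times, an unadjusted p below 0.05 gave 0 to 3 and DESeq2 0 to 2. BUB1, a kinase of the spindle checkpoint, fell (-0.65 ± 0.11 at CHIR 72 h, -0.48 ± 0.11 at Wnt3a 120 h and -1.36 ± 0.11 at bcat 72 h, adjusted p from 3.99e-11 to 0.00127). The call of BUB1 was lost at Wnt3a 120 h without 0 h replicate 2 (-0.30). TOP2A, topoisomerase II alpha, fell (-0.65 ± 0.12 at CHIR 24 h and -0.50 ± 0.12 at CHIR 72 h, adjusted p from 0.000287 to 0.00269). CDK1, the kinase that starts mitosis, rose (0.73 ± 0.15 at Wnt3a 24 h and 0.71 ± 0.15 at Wnt3a 120 h, adjusted p from 0.000743 to 0.000854). AURKA, a mitotic kinase, fell (-0.80 ± 0.12 at bcat 72 h, adjusted p = 7.1e-06).

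The ATF4 and CHOP response, by which cells react to amino acid shortage and misfolded protein and which shares some genes with p53, was read as a list of 12. Up to 24 h of CHIR99021, risen genes outnumbered fallen ones. At CHIR 8 h, 9 of the 12 rose and 2 fell (median 0.81), with 9.2% and 11.7% of all genes called (median -0.01). At CHIR 16 h, 8 of the 12 rose and 2 fell (median 0.61), with 6.55% and 9.34% of all genes called (median -0.02). At CHIR 24 h, 6 of the 12 rose and 0 fell (median 0.52), with 5.91% and 8.61% of all genes called (median -0.01). At 48 and 72 h of CHIR99021 the counts in both directions were closer. At CHIR 48 h, 6 of the 12 rose and 5 fell (median 0.44), with 15.7% and 18.1% of all genes called (median 0.02). At CHIR 72 h, 5 of the 12 rose and 4 fell (median 0.04), with 11.5% and 13.4% of all genes called (median 0.00). With Wnt3a more fell than rose at 24 and 120 h, and more rose than fell at 48 and 96 h. At Wnt3a 24 h, 4 of the 12 rose and 6 fell (median -0.18), with 9.32% and 10.9% of all genes called (median 0.04). At Wnt3a 48 h, 9 of the 12 rose and 0 fell (median 0.81), with 7.58% and 8.56% of all genes called (median 0.00). The last Wnt3a times also differed. At Wnt3a 96 h, 6 of the 12 rose and 4 fell (median 0.32), with 18.8% and 21% of all genes called (median 0.07). At Wnt3a 120 h, 1 of the 12 rose and 5 fell (median -0.41), with 12.2% and 15.6% of all genes called (median 0.00). In the bcat arm more rose than fell at 8 h, and more fell than rose at 24 and 72 h. At bcat 8 h, 5 of the 12 rose and 2 fell (median 0.43), with 10.7% and 8.01% of all genes called (median 0.05). At bcat 24 h, 1 of the 12 rose and 4 fell (median -0.24), with 6.87% and 5.95% of all genes called (median 0.09). At bcat 72 h, 2 of the 12 rose and 6 fell (median -0.53), with 13.6% and 13.6% of all genes called (median 0.06). Over the other 4 times of the 12-gene list, 0 to 2 rose and 3 to 6 fell, against 2.28% to 11.1% and 1.18% to 10.1% of all genes. Where edgeR's adjusted p gave 0 in a direction at any of the 16 times, an unadjusted p below 0.05 gave 1 to 2 and DESeq2 1. SLC7A11, the cystine importer, rose (2.74 ± 0.19 at CHIR 24 h, 2.62 ± 0.19 at CHIR 72 h, 1.82 ± 0.20 at bcat 24 h and 1.89 ± 0.21 at bcat 72 h, adjusted p from 5.52e-12 to 1.38e-07). With Wnt3a SLC7A11 fell (-1.43 ± 0.19 at Wnt3a 24 h, adjusted p = 2.28e-06). DDIT3, which encodes CHOP, rose (2.62 ± 0.33 at CHIR 24 h, 1.77 ± 0.34 at CHIR 72 h and 1.45 ± 0.35 at Wnt3a 120 h, adjusted p from 8.42e-07 to 0.00211). The call of DDIT3 was lost at Wnt3a 120 h without 0 h replicate 2 (1.78). ATF3, a stress transcription factor, rose (1.59 ± 0.22 at CHIR 72 h, 1.5 ± 0.25 at Wnt3a 24 h and 1.09 ± 0.24 at bcat 72 h, adjusted p from 1e-06 to 0.000928). DDIT4, an inhibitor of mTORC1 that p53 can also raise, fell (-2.13 ± 0.29 at CHIR 72 h, -1.10 ± 0.31 at Wnt3a 24 h, -2.21 ± 0.34 at Wnt3a 120 h, -1.45 ± 0.28 at bcat 24 h and -3.07 ± 0.30 at bcat 72 h, adjusted p from 7.39e-08 to 0.0143). The call of DDIT4 was lost at Wnt3a 24 h without 0 h replicate 2 (-0.52) or 24 h replicate 1 (-1.05) or 24 h replicate 2 (-1.14). VLDLR, a lipoprotein receptor, fell (-1.01 ± 0.15 at CHIR 72 h, -1.94 ± 0.16 at bcat 24 h and -2.43 ± 0.17 at bcat 72 h, adjusted p from 9.3e-13 to 6.7e-06). ASNS, asparagine synthetase, fell (-0.59 ± 0.12 at CHIR 72 h and -2.00 ± 0.13 at bcat 72 h, adjusted p from 5.48e-13 to 0.000405). PHGDH, the entry enzyme of serine synthesis, fell (-1.28 ± 0.11 at Wnt3a 120 h, adjusted p = 1.58e-10).

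The untreated cultures of the 3 arms did not start at the same p53 target levels. In the uninduced bcat line 2 of the 30 members were higher and 8 lower than in untreated H9 of the CHIR99021 arm (6.06% and 9.6% of all genes, 15.7% together), with a median difference of -0.40 (all genes -0.09). The higher ones were PMAIP1 (2.12 ± 0.20) and DDB2 (0.77 ± 0.15). The lower ones were PLK3 (-1.38 ± 0.42), GADD45A (-1.28 ± 0.28), BTG2 (-1.18 ± 0.24), AEN (-1.15 ± 0.13), CDKN1A (-1.10 ± 0.25), PHLDA3 (-0.93 ± 0.26), TNFRSF10B (-0.65 ± 0.13) and CYFIP2 (-0.48 ± 0.15). PMAIP1 had the largest difference in either direction. In this comparison calls were lost for BTG2 (-1.09), PLK3 (-1.65) and PHLDA3 (-0.64) without bcat 0 h replicate 2, for PLK3 (-1.26) and CYFIP2 (-0.35) without bcat 0 h replicate 1, for PLK3 (-1.25), PHLDA3 (-0.86) and CYFIP2 (-0.52) without CHIR 0 h replicate 2, for CYFIP2 (-0.45) without CHIR 0 h replicate 1. GADD45A (-1.98) without bcat 0 h replicate 2 stayed called but moved by over 1.5 times. The 0 h cultures of the Wnt3a arm had 1 member higher and 10 lower than those of the CHIR99021 arm (4.12% and 6.75% of all genes, 10.9% together), with a median difference of -0.46 (all genes -0.04). The higher one was TP53I3 (0.67 ± 0.15). The lower ones were CDKN1A (-1.63 ± 0.24), SESN1 (-1.24 ± 0.17), BBC3 (-1.08 ± 0.27), BTG2 (-1.06 ± 0.20), PHLDA3 (-0.98 ± 0.24), PMAIP1 (-0.97 ± 0.20), TNFRSF10B (-0.93 ± 0.13), GADD45A (-0.74 ± 0.24), AEN (-0.57 ± 0.13) and CCNG1 (-0.48 ± 0.13). The labels give untreated H9 for both of these groups. Between these 0 h groups calls were lost for BBC3 (-1.05), TP53I3 (0.62), PHLDA3 (-0.91) and CCNG1 (-0.49) without CHIR 0 h replicate 2, for BBC3 (-1.26) without Wnt3a 0 h replicate 2, for PHLDA3 (-0.81), AEN (-0.41) and CCNG1 (-0.31) without Wnt3a 0 h replicate 1, for CCNG1 (-0.47) without CHIR 0 h replicate 1. The call was lost whichever library was left out for GADD45A (-0.84 to -0.64). BTG2 (-1.95) without Wnt3a 0 h replicate 2 stayed called but moved by over 1.5 times.

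Members were also compared between 24 h and the last time of each arm, a comparison in which both groups had the new medium. With CHIR99021 1 member rose and 11 fell from 24 to 72 h (6.21% and 4.98% of all genes, 11.2% together). Calls of the CHIR arm that were kept whichever library was left out were GDF15 (-2.83 ± 0.47), PHLDA3 (-1.16 ± 0.23), SESN1 (-0.92 ± 0.17), PMAIP1 (-0.85 ± 0.19), AEN (-0.75 ± 0.13) and RRM2B (-0.71 ± 0.17). This held more fallen than risen members. From 24 h on, CHIR calls were lost for BAX (-0.59), DDB2 (-0.49) and RPS27L (-0.48) without CHIR 24 h replicate 2, for BAX (-0.60) and RPS27L (-0.61) without CHIR 72 h replicate 1. The call was lost whichever library was left out for TP53I3 (0.44 to 0.55), FDXR (-0.73 to -0.46) and ZMAT3 (-0.82 to -0.71). With doxycycline 1 rose and 6 fell from 24 to 72 h (8.65% and 10.4% of all genes, 19% together). Calls of the bcat arm that were kept whichever library was left out were BTG2 (1.35 ± 0.19), PMAIP1 (-2.38 ± 0.21), PHLDA3 (-1.37 ± 0.27), RPS27L (-1.07 ± 0.18) and RRM2B (-1.06 ± 0.17). BTG2 was the member that rose, and GDF15, with 0 counts at 72 h, was at least 3.22-fold lower, again with 3 counts over the group in place of the 0. From 24 h on, bcat calls were lost for GDF15 without bcat 72 h replicate 1, for GDF15 and SESN1 (-0.33) without bcat 72 h replicate 2, for SESN1 (-0.55) without bcat 24 h replicate 1, for SESN1 (-0.46) without bcat 24 h replicate 2. With Wnt3a 3 rose and 7 fell from 24 to 120 h (11.7% and 14.4% of all genes, 26.1% together). Calls of the Wnt3a arm that were kept whichever library was left out were PERP (1.61 ± 0.16), TP53INP1 (0.95 ± 0.19) and BTG2 (0.81 ± 0.17), GDF15 (-3.29 ± 0.45), PMAIP1 (-2.53 ± 0.20), RRM2B (-1.86 ± 0.17), BBC3 (-1.32 ± 0.26) and TNFRSF10B (-0.88 ± 0.13). PERP and BTG2 were higher at 120 h, while PMAIP1 and GDF15 were lower. From 24 h on, Wnt3a calls were lost for DDB2 (-0.46) and CYFIP2 (-0.48) without Wnt3a 120 h replicate 1, for CYFIP2 (-0.43) without Wnt3a 24 h replicate 2, for CYFIP2 (-0.40) without Wnt3a 120 h replicate 2. TP53INP1 (0.61) without Wnt3a 120 h replicate 2 stayed called but moved by over 1.5 times.

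The 3 arms differed in few members at 8 h. The change from 0 h in 1 arm was compared with that in another by a test of the difference itself, at the 3 times after 0 h that all arms share before 72 h. Differences between arms join the agent with the starting levels of the arm's own 0 h group. The change with CHIR99021 exceeded that with Wnt3a at 8 h in 0 of the 30 members and was below it in 2 (1.37% and 3.28% of all genes, 4.65% together). For the 0, 4 had a higher change at an unadjusted p below 0.05 and 2 by DESeq2. Each of these calls was lost with 1 library left out. For CHIR99021 against Wnt3a the counts that moved by over 1.5 times were 0 above and 0 below (without CHIR 0 h replicate 1), 0 above and 0 below (without CHIR 0 h replicate 2), 0 above and 0 below (without CHIR 8 h replicate 1), 0 above and 0 below (without CHIR 8 h replicate 2), 1 above and 0 below (without Wnt3a 0 h replicate 1), 0 above and 0 below (without Wnt3a 8 h replicate 1), 0 above and 0 below (without Wnt3a 8 h replicate 2). Members above numbered 1 and below 0 in this comparison without the 4 libraries that stood apart. The change with CHIR99021 exceeded that in the bcat arm at 8 h in 1 of the 30 members and was below it in 0 (0.617% and 2.08% of all genes, 2.7% together). For the 0, 5 had a lower change at an unadjusted p below 0.05 and 0 by DESeq2. The CHIR99021 change at 8 h stayed above it for PMAIP1 (2.08 ± 0.27), whichever library was left out. For CHIR99021 against bcat the counts that moved by over 1.5 times were 1 above and 2 below (without bcat 0 h replicate 2). The change with Wnt3a exceeded that in the bcat arm at 8 h in 4 of the 30 members and was below it in 1 (2.62% and 2.97% of all genes, 5.6% together). The Wnt3a change at 8 h stayed above it for PMAIP1 (2.46 ± 0.28), whichever library was left out. For Wnt3a against bcat the counts that moved by over 1.5 times were 2 above and 0 below (without bcat 0 h replicate 1), 2 above and 1 below (without bcat 8 h replicate 1), 3 above and 0 below (without bcat 8 h replicate 2), 2 above and 1 below (without Wnt3a 0 h replicate 1), 3 above and 0 below (without Wnt3a 0 h replicate 2), 2 above and 1 below (without Wnt3a 8 h replicate 1), 2 above and 0 below (without Wnt3a 8 h replicate 2). Members above numbered 1 and below 0 in this comparison without the 4 libraries that stood apart.

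At 24 h the changes of GDF15, PLK2, BBC3, PMAIP1, RRM2B and TNFRSF10B with Wnt3a were above those of both other arms. For BBC3 the call against the bcat arm was lost without bcat 0 h replicate 2 (1.32). The change with CHIR99021 exceeded that with Wnt3a at 24 h in 0 of the 30 members and was below it in 6 (4.39% and 5.56% of all genes, 9.95% together). For the 0, 2 had a higher change at an unadjusted p below 0.05 and 1 by DESeq2. The CHIR99021 change at 24 h stayed below it for GDF15 (-2.60 ± 0.59), PLK2 (-2.26 ± 0.35), BBC3 (-2.10 ± 0.38), PMAIP1 (-1.74 ± 0.28), RRM2B (-1.46 ± 0.24) and TNFRSF10B (-0.95 ± 0.18), whichever library was left out. The change with CHIR99021 exceeded that in the bcat arm at 24 h in 3 of the 30 members and was below it in 1 (1.65% and 3.3% of all genes, 4.95% together). The CHIR99021 change at 24 h stayed above it for PMAIP1 (1.86 ± 0.27), whichever library was left out. For CHIR99021 against bcat the counts that moved by over 1.5 times were 2 above and 0 below (without CHIR 24 h replicate 2). Members above numbered 2 and below 0 in this comparison without the 4 libraries that stood apart. The change with Wnt3a exceeded that in the bcat arm at 24 h in 11 of the 30 members and was below it in 2 (5.95% and 9.06% of all genes, 15% together). The Wnt3a change at 24 h stayed above it for GDF15 (4.77 ± 0.72), PMAIP1 (3.60 ± 0.28), PLK2 (2.37 ± 0.38), RRM2B (1.87 ± 0.24), BTG2 (1.61 ± 0.32), CDKN1A (1.54 ± 0.36) and TNFRSF10B (1.10 ± 0.18) and below it for TP53I3 (-0.94 ± 0.22), whichever library was left out. Members above numbered 7 and below 1 in this comparison without the 4 libraries that stood apart.

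At 48 h the changes of CDKN1A, BTG2, SPATA18 and TNFRSF10B with CHIR99021 were above those of both other arms. Both added agents differed from the bcat arm in PMAIP1 and BTG2 whichever library was left out. Against Wnt3a, every higher CHIR99021 call was lost without Wnt3a 0 h replicate 2 (CDKN1A 1.30, BTG2 0.23). The change with CHIR99021 exceeded that with Wnt3a at 48 h in 5 of the 30 members and was below it in 4 (6.75% and 9.35% of all genes, 16.1% together). The CHIR99021 change at 48 h stayed below it for BBC3 (-2.23 ± 0.39) and CYFIP2 (-1.01 ± 0.20), whichever library was left out. For CHIR99021 against Wnt3a the counts that moved by over 1.5 times were 0 above and 2 below (without Wnt3a 0 h replicate 2). The change with CHIR99021 exceeded that in the bcat arm at 48 h in 10 of the 30 members and was below it in 3 (5.97% and 10.6% of all genes, 16.5% together). The CHIR99021 change at 48 h stayed above it for PMAIP1 (3.18 ± 0.28), SPATA18 (3.12 ± 0.69), BTG2 (2.81 ± 0.33), CDKN1A (1.63 ± 0.35), SESN1 (1.09 ± 0.24), TNFRSF10B (1.08 ± 0.18) and DDB2 (0.84 ± 0.21) and below it for CYFIP2 (-1.55 ± 0.21) and TP53I3 (-0.80 ± 0.22), whichever library was left out. The change with Wnt3a exceeded that in the bcat arm at 48 h in 10 of the 30 members and was below it in 1 (5.29% and 6.84% of all genes, 12.1% together). The Wnt3a change at 48 h stayed above it for PMAIP1 (3.45 ± 0.29) and BTG2 (1.70 ± 0.34), whichever library was left out. For Wnt3a against bcat the counts that moved by over 1.5 times were 5 above and 1 below (without bcat 0 h replicate 2), 7 above and 0 below (without bcat 48 h replicate 1), 6 above and 1 below (without bcat 48 h replicate 2), 6 above and 0 below (without Wnt3a 0 h replicate 2), 6 above and 0 below (without Wnt3a 48 h replicate 2). Members above numbered 6 and below 0 in this comparison without the 4 libraries that stood apart.

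**Figure D5:**
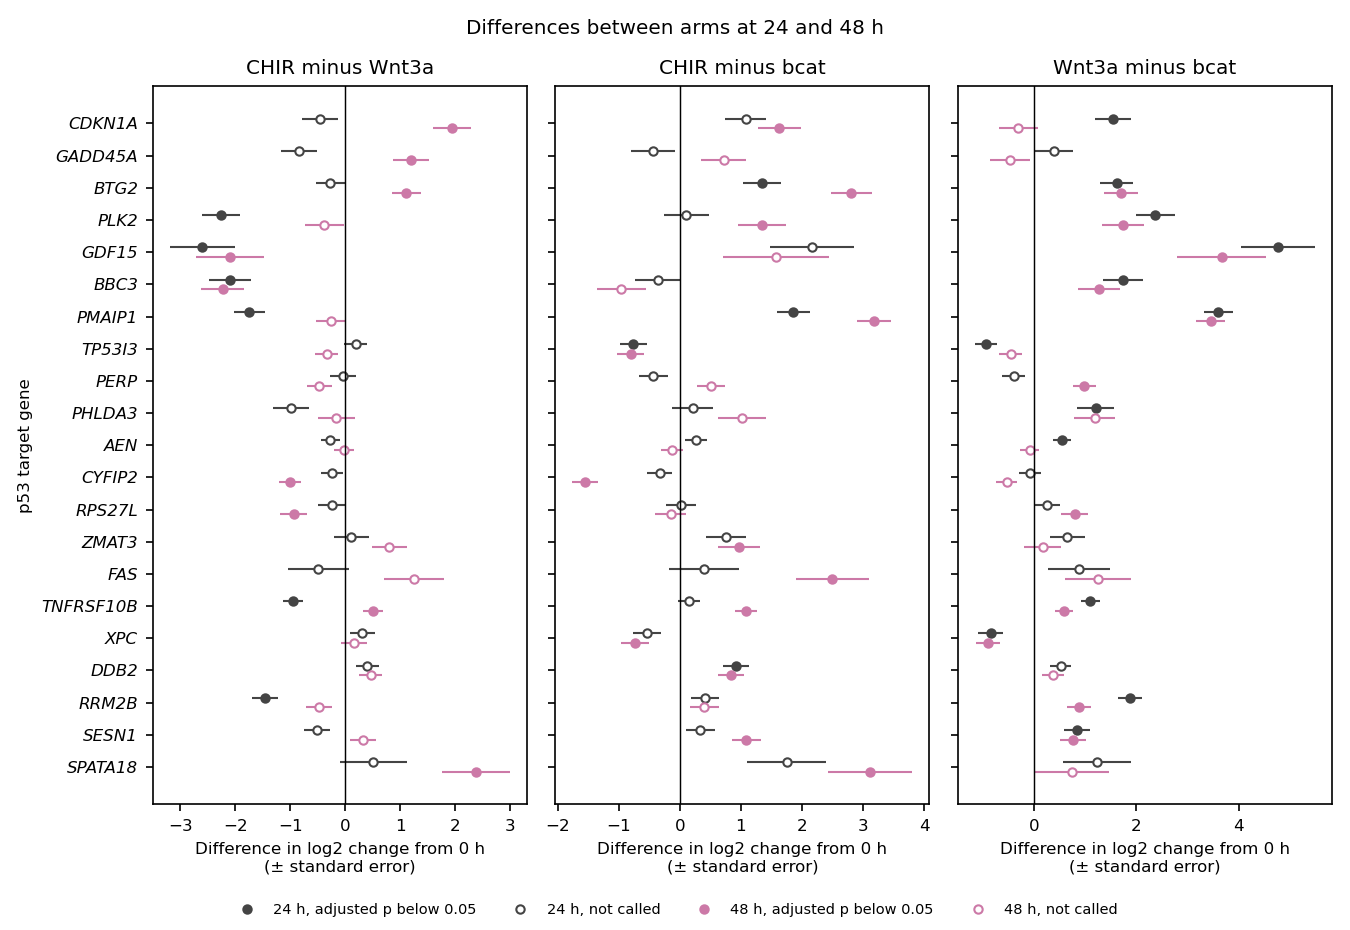
Difference between arms in the log2 change from 0 h (± standard error) at 24 h (dark) and 48 h (pink) for the 21 members called in at least 1 comparison between arms, with filled points where the adjusted p is below 0.05. PMAIP1, GDF15 and PLK2 lie furthest to the right for Wnt3a minus bcat at 24 h, and BTG2, FAS, SPATA18 and PMAIP1 for CHIR minus bcat at 48 h.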

How the data were processed

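Total RNA was sequenced from 38 samples in 19 groups. The authors deposited estimated counts per gene made with kallisto 0.43.0, per the submitters' processing notes. The genome build, annotation and use of strand were not given in the sources used here. In the deposited table each column held these counts multiplied by 1 constant, which was divided out before rounding to whole numbers. The identical Wnt3a 72 h columns were used as 1 library. Genes were tested with edgeR 4.0.16 (R 4.3.3) by its quasi-likelihood test on all 37 libraries, with TMM scaling, its filter on low counts and Benjamini-Hochberg adjustment over 24304 genes within each comparison. DESeq2 1.42.0, other scalings, the filter, the replicate number as a block and leaving out libraries were the alternatives. Scripts were tested on simulated data.

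The members and lists were chosen with earlier results of these data known. All 30 members are described, with values per library for those called at 5 or more of the 16 times and for CDKN1A, MDM2, GDF15, BAX, BBC3 and FAS. From the other lists at most 3 genes per direction with the largest called change were eligible at CHIR 24 and 72 h, Wnt3a 24 and 120 h and bcat 24 and 72 h. Results for some genes that this rule names are not reported here. The low depth of some libraries widens their counting error.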

Additional observations from a re-analysis of the deposited data

Results flagged for a closer look

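The groups held at most 2 libraries, and single libraries were not tested as outliers. The results below are the differences between arms in the change from 0 h that passed edgeR's test of the difference itself (adjusted p below 0.05): 64 of 270 tests, over 21 of the 30 members and 9 comparisons. In the same 9 comparisons 2.7% to 16.5% of all genes were called. All values are differences of log2 changes, and no explanation was tested.

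At 8 h the CHIR99021 change was below the Wnt3a change for RRM2B (-0.82) and SESN1 (-0.82). For CHIR99021 against Wnt3a at 8 h calls were lost for RRM2B (-0.90) without CHIR 0 h replicate 1, for RRM2B (-0.74) without CHIR 0 h replicate 2, for RRM2B (-0.83) without CHIR 8 h replicate 1, for RRM2B (-0.81) without CHIR 8 h replicate 2, for RRM2B (-0.72) without Wnt3a 0 h replicate 1, for RRM2B (-0.71) without Wnt3a 8 h replicate 1, for RRM2B (-0.93) without Wnt3a 8 h replicate 2. The call was lost whichever library was left out for SESN1 (-0.89 to -0.76).

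At 8 h the CHIR99021 change was above the bcat change for PMAIP1 (2.08). 

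At 8 h the Wnt3a change was above the bcat change for PMAIP1 (2.46), BTG2 (1.29), RRM2B (0.82) and DDB2 (0.74) and below the bcat change for XPC (-0.89). For Wnt3a against bcat at 8 h calls were lost for RRM2B (0.70) and BTG2 (1.38) without bcat 0 h replicate 2, for RRM2B (0.52) and DDB2 (0.67) without bcat 8 h replicate 1, for RRM2B (0.74) and DDB2 (0.60) without Wnt3a 0 h replicate 1, for RRM2B (0.92) and XPC (-0.75) without Wnt3a 0 h replicate 2, for RRM2B (0.71) and DDB2 (0.66) without Wnt3a 8 h replicate 1, for BTG2 (1.22), XPC (-0.81) and DDB2 (0.61) without bcat 0 h replicate 1, for BTG2 (1.17) and XPC (-0.76) without bcat 8 h replicate 2, for BTG2 (1.26), XPC (-0.84) and DDB2 (0.82) without Wnt3a 8 h replicate 2. BTG2 (2.18) without Wnt3a 0 h replicate 2 stayed called but moved by over 1.5 times.

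At 24 h the CHIR99021 change was below the Wnt3a change for GDF15 (-2.60), PLK2 (-2.26), BBC3 (-2.10), PMAIP1 (-1.74), RRM2B (-1.46) and TNFRSF10B (-0.95). PLK2 (-1.47) without Wnt3a 0 h replicate 2 stayed called but moved by over 1.5 times.

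At 24 h the CHIR99021 change was above the bcat change for PMAIP1 (1.86), BTG2 (1.34) and DDB2 (0.92) and below the bcat change for TP53I3 (-0.76). For CHIR99021 against bcat at 24 h calls were lost for TP53I3 (-0.60) without bcat 0 h replicate 1, for TP53I3 (-0.76) without bcat 24 h replicate 1, for TP53I3 (-0.70) without bcat 24 h replicate 2, for TP53I3 (-0.71) without CHIR 0 h replicate 1, for TP53I3 (-0.81) without CHIR 0 h replicate 2, for TP53I3 (-0.71) without CHIR 24 h replicate 1, for TP53I3 (-0.82) and DDB2 (0.75) without CHIR 24 h replicate 2, for BTG2 (1.43) without bcat 0 h replicate 2.

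At 24 h the Wnt3a change was above the bcat change for GDF15 (4.77), PMAIP1 (3.60), PLK2 (2.37), RRM2B (1.87), BBC3 (1.74), BTG2 (1.61), CDKN1A (1.54), PHLDA3 (1.2), TNFRSF10B (1.10), SESN1 (0.84) and AEN (0.54) and below the bcat change for TP53I3 (-0.94) and XPC (-0.85). For Wnt3a against bcat at 24 h calls were lost for BBC3 (1.32), SESN1 (0.75) and AEN (0.48) without bcat 0 h replicate 2, for SESN1 (0.80), PHLDA3 (1.0) and AEN (0.50) without bcat 24 h replicate 1, for SESN1 (0.90) and XPC (-0.70) without Wnt3a 0 h replicate 2, for SESN1 (0.61), XPC (-0.79), PHLDA3 (0.95) and AEN (0.38) without Wnt3a 24 h replicate 2, for XPC (-0.74), PHLDA3 (0.96) and AEN (0.57) without bcat 0 h replicate 1, for PHLDA3 (1.07) and AEN (0.42) without Wnt3a 0 h replicate 1, for AEN (0.60) without bcat 24 h replicate 2. BTG2 (2.50) without Wnt3a 0 h replicate 2 stayed called but moved by over 1.5 times.

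At 48 h the CHIR99021 change was above the Wnt3a change for SPATA18 (2.37), CDKN1A (1.94), GADD45A (1.19), BTG2 (1.11) and TNFRSF10B (0.50) and below the Wnt3a change for BBC3 (-2.23), GDF15 (-2.09), CYFIP2 (-1.01) and RPS27L (-0.94). For CHIR99021 against Wnt3a at 48 h calls were lost for CDKN1A (1.30), GDF15 (-2.36), TNFRSF10B (0.51), BTG2 (0.23), SPATA18 (1.98), GADD45A (1.09) and RPS27L (-0.87) without Wnt3a 0 h replicate 2, for GDF15 (-1.76) without CHIR 48 h replicate 2, for GDF15 (-1.73) and TNFRSF10B (0.55) without Wnt3a 48 h replicate 2, for TNFRSF10B (0.44) without CHIR 0 h replicate 1, for TNFRSF10B (0.57) and GADD45A (1.09) without CHIR 0 h replicate 2, for TNFRSF10B (0.38) and GADD45A (1.02) without CHIR 48 h replicate 1, for TNFRSF10B (0.48) without Wnt3a 0 h replicate 1, for TNFRSF10B (0.47) without Wnt3a 48 h replicate 1.

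At 48 h the CHIR99021 change was above the bcat change for PMAIP1 (3.18), SPATA18 (3.12), BTG2 (2.81), FAS (2.50), CDKN1A (1.63), PLK2 (1.35), SESN1 (1.09), TNFRSF10B (1.08), ZMAT3 (0.97) and DDB2 (0.84) and below the bcat change for CYFIP2 (-1.55), TP53I3 (-0.80) and XPC (-0.73). For CHIR99021 against bcat at 48 h calls were lost for FAS (2.12) without bcat 0 h replicate 2, for PLK2 (1.05) and XPC (-0.65) without bcat 0 h replicate 1, for PLK2 (1.27) and XPC (-0.63) without bcat 48 h replicate 1, for PLK2 (1.27) and XPC (-0.62) without CHIR 48 h replicate 1, for XPC (-0.67) without CHIR 0 h replicate 2. The call was lost whichever library was left out for ZMAT3 (0.85 to 1.11).

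At 48 h the Wnt3a change was above the bcat change for GDF15 (3.67), PMAIP1 (3.45), PLK2 (1.73), BTG2 (1.70), BBC3 (1.27), PERP (0.98), RRM2B (0.88), RPS27L (0.79), SESN1 (0.76) and TNFRSF10B (0.58) and below the bcat change for XPC (-0.90). For Wnt3a against bcat at 48 h calls were lost for GDF15 (2.75), BBC3 (0.88) and XPC (-0.80) without bcat 48 h replicate 1, for BBC3 (0.85), TNFRSF10B (0.52), RRM2B (0.76), PERP (0.59) and RPS27L (0.58) without bcat 0 h replicate 2, for BBC3 (1.2) without Wnt3a 0 h replicate 1, for BBC3 (1.46), TNFRSF10B (0.57), PLK2 (0.94), XPC (-0.75) and RPS27L (0.72) without Wnt3a 0 h replicate 2, for BBC3 (0.89), TNFRSF10B (0.51), XPC (-0.79) and RPS27L (0.86) without Wnt3a 48 h replicate 2, for TNFRSF10B (0.48), RRM2B (0.77) and RPS27L (0.57) without bcat 48 h replicate 2, for TNFRSF10B (0.61) and RPS27L (0.70) without Wnt3a 48 h replicate 1. The call was lost whichever library was left out for SESN1 (0.67 to 0.88). BTG2 (2.59) without Wnt3a 0 h replicate 2 stayed called but moved by over 1.5 times.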

How the results depend on the processing

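Of the 30 counts of called members, these moved by over 1.5 times. With scaling by library totals alone the count was 1 for CHIR 8 h, 5 for CHIR 16 h, 2 for CHIR 24 h, 5 for CHIR 72 h, 1 for Wnt3a 8 h, 7 for Wnt3a 24 h, 2 for Wnt3a 48 h, 2 for Wnt3a 72 h, 6 for Wnt3a 120 h, 4 for bcat 8 h, 2 for bcat 16 h, 3 for bcat 24 h, 9 for bcat 72 h, 0 for CHIR minus Wnt3a at 8 h, 1 for Wnt3a minus bcat at 8 h, 3 for CHIR minus Wnt3a at 24 h, 1 for CHIR minus bcat at 24 h, 7 for Wnt3a minus bcat at 24 h, 4 for CHIR minus Wnt3a at 48 h, 7 for CHIR minus bcat at 48 h, 5 for Wnt3a minus bcat at 48 h, 2 for CHIR 72 h minus 24 h, 4 for bcat 72 h minus 24 h, 5 for bcat 0 h minus CHIR 0 h and 1 for Wnt3a 0 h minus CHIR 0 h. With the libraries of the compared arms alone the count was 17 for CHIR 24 h, 1 for Wnt3a 8 h, 5 for Wnt3a 48 h and 2 for CHIR minus bcat at 8 h. Without the 4 libraries that stood apart the count was 6 for bcat 16 h, 5 for bcat 24 h, 1 for CHIR minus Wnt3a at 8 h, 1 for Wnt3a minus bcat at 8 h, 2 for CHIR minus bcat at 24 h, 8 for Wnt3a minus bcat at 24 h and 6 for Wnt3a minus bcat at 48 h. With RLE size factors the count was 1 for CHIR minus Wnt3a at 8 h. Without the filter on low counts the count was 1 for CHIR minus Wnt3a at 8 h and 3 for CHIR minus bcat at 8 h. With the replicate block the count was 1 for CHIR minus Wnt3a at 8 h. With ribosomal RNA genes left out the count was 0 for CHIR minus Wnt3a at 8 h. By DESeq2 the count was 4 for CHIR minus Wnt3a at 8 h, 2 for CHIR minus bcat at 8 h and 7 for CHIR minus bcat at 24 h. On the deposited values as they stand the count was 2 for CHIR minus bcat at 8 h. With adjustment over all comparisons the count was 4 for CHIR minus bcat at 8 h. With 1 library left out in turn, the counts that moved ran from 6 to 9 for CHIR 8 h, 11 to 14 for CHIR 16 h, 4 to 6 for CHIR 24 h, 1 to 3 for Wnt3a 8 h, 3 to 9 for Wnt3a 48 h, 4 to 9 for Wnt3a 72 h, 11 to 16 for Wnt3a 96 h, 6 to 8 for bcat 16 h, 11 to 13 for bcat 72 h, 0 to 2 for CHIR minus Wnt3a at 8 h, 1 to 3 for CHIR minus bcat at 8 h, 2 to 4 for Wnt3a minus bcat at 8 h, 2 to 4 for CHIR minus bcat at 24 h, 2 to 10 for CHIR minus Wnt3a at 48 h, 6 to 10 for Wnt3a minus bcat at 48 h, 6 to 10 for CHIR 72 h minus 24 h and 6 to 9 for Wnt3a 0 h minus CHIR 0 h. Of 301 called changes of members, none was reversed, and the call was lost in 169 with library totals alone, 45 without the libraries that stood apart, 21 without the filter, 19 with the compared arms alone, 14 with the replicate block and 0 by DESeq2. Of all genes, library totals called fewer in each of the 30 comparisons (4.49% in place of 15.9% at CHIR 16 h, 5.27% in place of 20.9% at CHIR 8 h), and the compared arms alone called 23.4% in place of 14.5% at CHIR 24 h. Library totals moved the median of all genes by -0.35 to 0.22 against 0 h. Of 45 pairs of groups within an arm, 0 had differences between replicates that correlated above 0.1 across genes (-0.0519 to 0.0552). In most fits that leave out a library, 1 group has a lone library assumed to vary like the others. The cause of these shifts was not tested.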
